A study of Rattus norvegicus with 28 samples.

Results

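The lungs of Sprague Dawley rats with chronic lung injury were compared with and without mechanical ventilation at a constant tidal volume, over every gene of the deposited table. The ventilated group, chronic_VCV (n = 3), held animals with chronic lung injury that received volume-controlled ventilation in which each breath had the same tidal volume. The unventilated group, control_chronic (n = 5), was taken 14 days after chronic injury was induced. Of 17002 genes in the table, 14908 had a mean value of at least 10 over all 28 libraries and were tested, and these 2 groups make up 8 of those 28 libraries. Uninjured lungs without ventilation (control_blank, n = 3) and with constant ventilation (healthy_VCV, n = 4), and chronically injured lungs under variable tidal volumes (chronic_noisy, n = 3), served for comparison. The agent of the injury, the age and sex of the animals, the tidal volumes and the duration of ventilation are not given in the sources used here, nor is the time from injury to ventilation in the ventilated groups. The question addressed is how the lung's messenger RNA differs after constant ventilation when the lung already carries a chronic injury.

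Volume-controlled ventilation delivers a set breath through the airway and stretches the alveolar wall in a repeated way. In lung biology, such stretch is known to act on the epithelium and endothelium through mechanosensitive channels, growth factor receptors and transcription factors, and to bring neutrophils from blood into the airspaces. The lung of the rat also carries lymphoid follicles along its airways, in which B cells and stromal cells gather after injury. In whole tissue, fewer cells of a type and less RNA per cell cannot be told apart.

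RNA of the right upper lobe was selected by its poly(A) tail and sequenced with strand-specific libraries. Depth, as reads recovered from the deposited values, was 11280590 to 16842768 in chronic_VCV and 6024093 to 17162741 in control_chronic. The labels give the samples separate numbers but do not say that they came from separate animals, so p-values measure the spread between these samples. The numbers that open the sample titles begin with 15 in all chronic_VCV and with 18 in all control_chronic libraries. What these numbers stand for is not given in the sources used here, and the 15 and 18 series cannot be told apart from these 2 groups. Over the 8 libraries the first principal component (40.6% of the variance) separated the groups, and the second (17.4%) set chronic_VCV_067 at 55.7, against -33.0 and -12.7 for the other chronic_VCV libraries and -18.2 to 16.8 for control_chronic. Markers of lung tissue were abundant in every library: the surfactant gene Sftpc, of alveolar type 2 cells, was at 226409.9, 270167 and 272419 in chronic_VCV and at 374554, 331715, 305687, 339966 and 302134 in control_chronic, and Ager, of alveolar type 1 cells, was at 42609.6, 42154 and 54949 in chronic_VCV and at 72570.4, 52004, 62155, 67202 and 56385 in control_chronic. Neither passed the test, with changes of -0.37 ± 0.21 (adjusted p = 0.246) and -0.42 ± 0.17 (adjusted p = 0.093).

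Throughout, levels are deposited values, which are read counts scaled to a common library size, and they are listed in the order chronic_VCV_067, chronic_VCV_069 and chronic_VCV_073, then control_chronic_113 to control_chronic_117. Changes are log2 differences in the mean of log2(value + 1), chronic_VCV minus control_chronic, as change ± SE with the adjusted p of limma in parentheses. In all, 2205 of 14908 genes passed at an adjusted p below 0.05, which is 14.8% of the genes tested. Of these, 1027 were higher in the ventilated lungs (6.89%) and 1178 were lower (7.9%), and the median change over all genes was 0.02. For 684 of them, 320 higher and 364 lower, the test was also passed with each of the 8 libraries left out in turn. The count was 1181 without chronic_VCV_069 and 1402 without chronic_VCV_073. Without both control_chronic_113 and control_chronic_114, the least deep libraries, it was 1389.

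The 14 and 15 series both occur within healthy_VCV (3 and 1 libraries) and within acute_noisy (2 and 2), acutely injured lungs under variable ventilation, so a shift between these series can be estimated inside groups. As an alternative chosen after seeing the data, this shift was added to the fit as a series term, taken to be alike in all groups, which was not tested. The series term covers the 15 series only. The 18 series of all control_chronic libraries still cannot be told apart from that group, whether or not a gene passed with the term. The 15 series passed against the 14 series in 171 genes, 90 higher and 81 lower. With the series term 2335 genes passed after chronic injury. Of the 2205 genes called without it, 513 higher and 694 lower ones passed again in the same direction, and 2200 had the same sign. Then 11 of 20 neutrophil and 7 of 22 macrophage genes were higher, and 15 of 23 cilia and 5 of 10 club cell genes were lower. Lower counts moved to 0 of 14 for B and plasma cells, 0 of 22 for T and NK cells, 3 of 14 for goblet cells and glands, 17 of 70 for the respiratory chain and 0 of 64 for ribosomal proteins. Higher counts moved to 8 of 24 for stress genes, 2 of 25 for cholesterol genes, 3 of 15 for clock genes, 3 of 19 for channels and pumps, 6 of 25 for chemokines, 17 of 36 for matrix genes, 7 of 22 for endoplasmic reticulum genes, 6 of 25 for heat shock genes and 7 of 19 for transfer RNA synthetases. Of alveolar type 1 cell genes 8 of 16 were then lower, and of type 2 cell genes 4 of 14 lower and 0 higher. These counts were not tested against all-gene shares with the term. Ager (-0.84, adjusted p = 0.0127) and Sftpc (-1.04, adjusted p = 0.0095) passed with the series term.

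The genes that rose most were led by neutrophil and myeloid genes. Prok2 (ENSRNOG00000010898), a secreted peptide made by neutrophils, was at 133, 80.1 and 144 in chronic_VCV and at 0, 5.95, 3.82, 3.36 and 3.21 in control_chronic. Il1r2 (ENSRNOG00000014378), a decoy receptor that binds interleukin 1 without signalling, was at 974, 761 and 987 in chronic_VCV and at 54.0, 55.5, 30.6, 42.1 and 22.5 in control_chronic. Mmp8 (ENSRNOG00000009907), the collagenase of neutrophil granules, was at 1349, 454 and 1168 in chronic_VCV and at 76.3, 83.3, 20.4, 80.8 and 34.3 in control_chronic. In each of these genes every ventilated library lay above every unventilated one. Prok2 rose by 5.01 ± 0.51 (adjusted p = 2.81e-06), Il1r2 by 4.50 ± 0.52 (adjusted p = 1.71e-05), which is 22.7-fold on this scale, and Mmp8 by 4.09 ± 0.51 (adjusted p = 4.05e-05). S100a8 (ENSRNOG00000011557) and S100a9 (ENSRNOG00000011483), the subunits of calprotectin, which neutrophils carry in bulk, rose by 4.02 ± 0.50 (adjusted p = 3.87e-05) and 3.71 ± 0.46 (adjusted p = 3.84e-05). S100a9 was at 14341, 4761 and 7292 in chronic_VCV and at 524, 936, 389.7, 1327 and 318 in control_chronic, with the highest ventilated value in chronic_VCV_067 and the highest unventilated value in control_chronic_116.

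Other leading genes were Clec4e, Retnlg, Mt2A, Gal, Grik4, Irg1 and Gpr84. Clec4e (ENSRNOG00000010203), a receptor for microbial glycolipids and dead cells, was at 525, 245 and 348 in chronic_VCV and at 28.6, 37.7, 34.4, 25.2 and 6.43 in control_chronic and rose by 3.90 ± 0.51 (adjusted p = 6.57e-05). Retnlg (ENSRNOG00000001943), a resistin-like protein of granulocytes, rose by 3.78 ± 0.37 (adjusted p = 2.81e-06). Mt2A (ENSRNOG00000043098), a metal-binding metallothionein, was at 794, 464 and 291 in chronic_VCV and at 35.0, 49.6, 22.9, 74.02 and 14.99 in control_chronic and rose by 3.77 ± 0.68 (adjusted p = 0.00101). The groups did not overlap in any of these. The neuropeptide gene Gal (ENSRNOG00000015156) rose by 3.44 ± 0.56 (adjusted p = 0.00041), and the kainate receptor subunit Grik4 (ENSRNOG00000030910) rose by 4.54 ± 0.85 (adjusted p = 0.0013), though Grik4 spread from 0 to 38.2 in control_chronic. Irg1 (ENSRNOG00000009919), which makes itaconate in activated macrophages, rose by 3.90 ± 1.09 (adjusted p = 0.0187), and the fatty acid receptor Gpr84 (ENSRNOG00000036834) by 3.67 ± 1.06 (adjusted p = 0.0227). Irg1 did not pass without chronic_VCV_067 or chronic_VCV_073 (change 3.74 and 3.75, adjusted p = 0.0526 and 0.0652). Gpr84 did not pass without chronic_VCV_067, chronic_VCV_069, chronic_VCV_073 or control_chronic_115 (change 3.41 to 3.91, adjusted p = 0.0503 to 0.0675), nor by edgeR (adjusted p = 0.0696). Grik4 (2.85, adjusted p = 0.0849), Irg1 (4.33, adjusted p = 0.0641) and Gpr84 (4.28, adjusted p = 0.0603) did not pass with the series term.

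**Figure D1:**
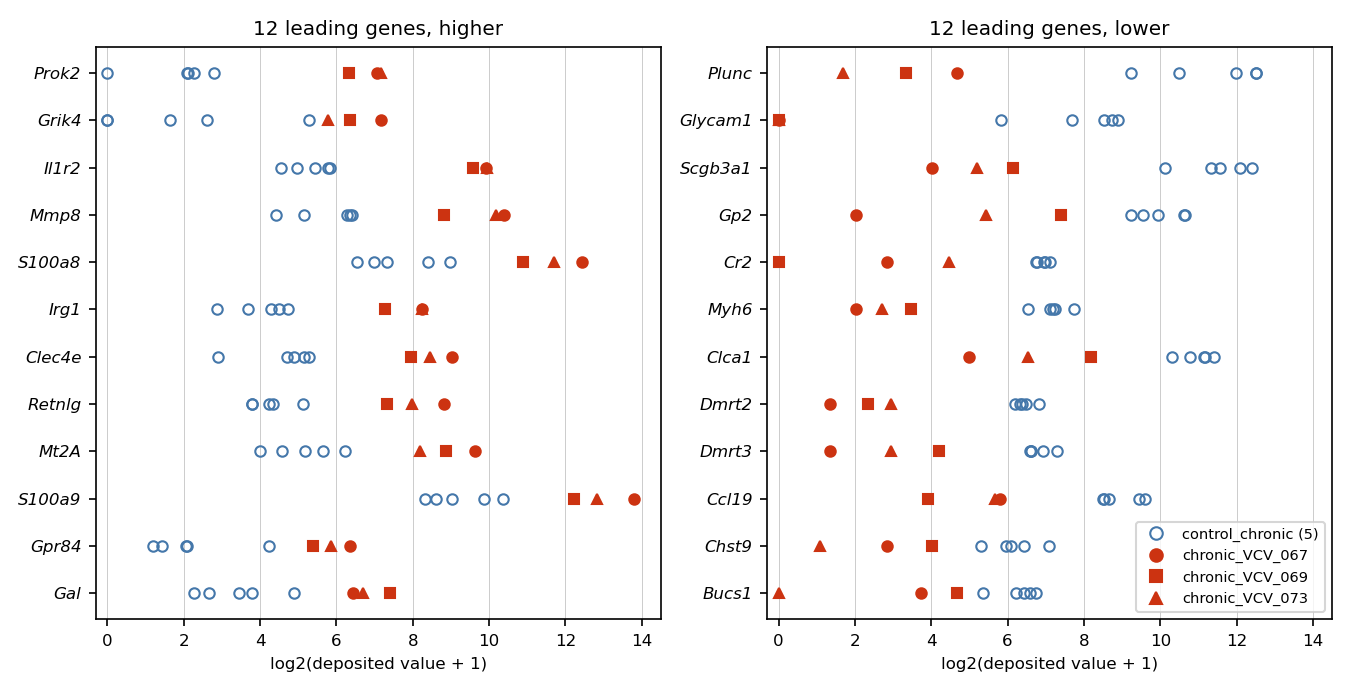
Levels of the 12 highest and 12 lowest genes as log2(deposited value + 1), with 1 open circle for each of the 5 control_chronic libraries and 1 filled symbol for each chronic_VCV library. No gene overlaps between the groups, and Glycam1 is at 0 in all 3 ventilated libraries.

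The leading genes were chosen among those without overlap, so this absence of overlap is not a finding for them. Over all genes tested, 10.3% had every ventilated library above every unventilated one, and 12.2% had every one below.

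Of 20 neutrophil genes tested, 12 were higher and 0 lower, and 15 had no overlap. The list's median change was 1.56, and its summed level was 15886 to 32990.5 in the ventilated against 3904 to 6786 in the unventilated libraries. No member was at 0 in all libraries of a group. Beyond the leading genes, Csf3r, the receptor for granulocyte colony-stimulating factor, was at 3172, 1723 and 3255 in chronic_VCV and at 359, 448, 387, 377 and 389 in control_chronic and rose by 2.74 ± 0.42 (adjusted p = 0.000266). The chemokine receptor Il8rb (Cxcr2), which draws neutrophils to CXC chemokines, was at 335, 193 and 670.1 in chronic_VCV and at 47.7, 51.5, 29.3, 43.7 and 10.7 in control_chronic and rose by 3.41 ± 0.58 (adjusted p = 0.000608). Another pair of members were close to 0 without ventilation, so that only their levels are given. Fpr1, the receptor for formylated bacterial peptides, was at 44.4, 8.11 and 52.1 in chronic_VCV and at 3.18, 0, 0, 0 and 0 in control_chronic, and the 3.18 is 1 read. Elane, neutrophil elastase, was at 68.9, 14.2 and 18.9 in chronic_VCV and at 0, 1.98, 0, 5.05 and 0 in control_chronic, or 4 reads over the 5 unventilated libraries. Both passed the test (adjusted p = 0.000255 and 8.53e-05). Selp, the P-selectin by which endothelium and platelets catch leukocytes, was at 809.8, 202 and 702 in chronic_VCV and at 57.2, 83.3, 114.62, 43.7 and 91.0 in control_chronic and rose by 2.70 ± 0.62 (adjusted p = 0.00586), and it was the member that was higher among 9 adhesion genes, of which 1 was lower.

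Cytokine genes gave a mixed picture. Of 13 tested, 3 were higher and 1 lower, with a median of 1.14. Il1b, the main inflammatory interleukin 1, was at 4415, 868 and 1978 in chronic_VCV and at 270.1, 452, 287, 686 and 192 in control_chronic and rose by 2.52 ± 0.51 (adjusted p = 0.00234). Csf1, the growth factor of macrophages, rose by 1.5 ± 0.34 (adjusted p = 0.00554), from a range of 464 to 997 to one of 1118 to 2900. Il33, an alarmin that epithelium and stroma hold in the nucleus, was at 3051, 2292 and 2802 in chronic_VCV and at 4801, 5397, 6059, 5019.9 and 7227 in control_chronic and fell by 1.06 ± 0.23 (adjusted p = 0.00432), and every ventilated library lay below every unventilated one. Tnf, Il6 and Cxcl1, often measured in ventilated lungs, did not pass. Tnf was at 337, 103 and 213 in chronic_VCV and at 89.0, 113.01, 59.9, 124 and 63.2 in control_chronic, a change of 1.17 ± 0.45 (adjusted p = 0.0811). Il6 was at 171, 1.01 and 6.66 in chronic_VCV and at 6.35, 7.93, 0, 3.36 and 5.35 in control_chronic, and its change of 1.63 ± 1.14 (adjusted p = 0.353) was -0.19 without chronic_VCV_067. The neutrophil chemokine Cxcl1 was at 2186, 165 and 305 in chronic_VCV and at 209.7, 266, 378, 525 and 291 in control_chronic, a change of 0.60 ± 0.59 (adjusted p = 0.53) that was -0.50 without the same library. For Il6 and Cxcl1, chronic_VCV_067 was the only ventilated library above all unventilated ones. Il6 (4.66, adjusted p = 0.0322) passed with the series term. Its shift, -3.03 ± 1.03 (adjusted p = 0.105), did not pass and used low values (0 to 6.13 in healthy_VCV).

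Of 25 chemokine genes, 2 were higher and 4 lower. The genes that fell include the chemokines of lymphoid tissue described below. Ccl17, which draws T helper cells, was low in every library, at 33.7, 18.2 and 33.3 in chronic_VCV and at 3.18, 5.95, 2.55, 6.73 and 1.07 in control_chronic, and rose by 2.69 ± 0.70 (adjusted p = 0.0122). Ccl17 did not pass without chronic_VCV_073 (change 2.55, adjusted p = 0.0508). Chemokine genes that were higher numbered 1 without chronic_VCV_067, control_chronic_113, control_chronic_114 or control_chronic_115 and 0 without chronic_VCV_073. Lower ones numbered 2 without chronic_VCV_069 or chronic_VCV_073.

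Factors downstream of these receptors rose in part. Of 16 NF-kB factors and feedback inhibitors, 6 were higher and 0 lower, and all 16 changes were positive, with a median of 0.93. Bcl3, a nuclear partner of NF-kB, was at 3181, 505 and 1172 in chronic_VCV and at 289, 299, 299, 286 and 336 in control_chronic and rose by 2.03 ± 0.43 (adjusted p = 0.00346). Tnip2, an inhibitor of the same pathway, was at 1473, 765 and 814 in chronic_VCV and at 521, 498, 498, 523 and 363 in control_chronic and rose by 1.03 ± 0.22 (adjusted p = 0.00396). Both were highest in chronic_VCV_067, and the groups did not overlap in either. NF-kB genes that were higher numbered 2 without chronic_VCV_067 and 3 without chronic_VCV_073 or control_chronic_115. Of 23 genes of Toll-like receptors and the interleukin 1 system, 6 were higher and 0 lower. Tlr2, the sensor of bacterial lipoproteins, was at 618, 205 and 427 in chronic_VCV and at 156, 163, 144, 103 and 127 in control_chronic and rose by 1.46 ± 0.33 (adjusted p = 0.00557). Its partner Tlr6 rose by 0.95 ± 0.24 (adjusted p = 0.0109) and the adaptor Myd88 by 0.79 ± 0.18 (adjusted p = 0.00595).

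Of 17 genes of the JAK-STAT pathway and interleukin 6 family, 8 were higher and 0 lower. Stat3, the transcription factor that interleukin 6 receptors activate, was at 13457, 7856 and 7913 in chronic_VCV and at 4601, 4340.0, 4786, 4648 and 5450.0 in control_chronic and rose by 0.99 ± 0.21 (adjusted p = 0.0029). Jak3, a tyrosine kinase of cytokine receptors, was at 2484, 1566 and 1959 in chronic_VCV and at 1055, 1124, 923, 796 and 771 in control_chronic and rose by 1.09 ± 0.18 (adjusted p = 0.000453). The kinase Pim1, a target of STAT factors, rose by 1.14 ± 0.25 (adjusted p = 0.00434) and the receptor subunit Il6r by 0.74 ± 0.17 (adjusted p = 0.00596). In all 4 genes the ventilated libraries lay above the unventilated ones. JAK-STAT genes that were higher numbered 5 without chronic_VCV_067 or chronic_VCV_069. Il6r (0.62, adjusted p = 0.0825) did not pass with the series term.

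Macrophage genes rose in part. Of 22 tested, 8 were higher and 1 lower, with a median of 0.71 and a summed level of 24563 to 38688 against 18589 to 22941 without ventilation. Nos2, the inducible nitric oxide synthase, was at 1045, 454 and 1115 in chronic_VCV and at 114.39, 137, 98.1, 103 and 173 in control_chronic and rose by 2.72 ± 0.59 (adjusted p = 0.00392). C1qb and C1qc, subunits of the complement component C1q that tissue macrophages make, were also counted in the complement list. C1qb was at 1029, 1713 and 1103 in chronic_VCV and at 562, 535, 498, 565 and 615 in control_chronic and rose by 1.17 ± 0.21 (adjusted p = 0.00111), and C1qc rose by 1.15 ± 0.19 (adjusted p = 0.000462). Cd163, the scavenger receptor for haemoglobin, was at 85.7, 278 and 77.7 in chronic_VCV and at 15.9, 15.9, 38.2, 37.0 and 27.8 in control_chronic and rose by 2.24 ± 0.54 (adjusted p = 0.00722). The values of Cd163 and of both C1q genes were highest in chronic_VCV_069, while Nos2 was lowest there. Cd163 did not pass without chronic_VCV_069 (change 1.66, adjusted p = 0.0776). Macrophage genes that were higher numbered 4 without chronic_VCV_069. Of 19 complement genes, 6 were higher and 0 lower, among them Masp1, a protease of the lectin pathway, at 1.81 ± 0.38 (adjusted p = 0.00304). Complement genes that were higher numbered 3 without chronic_VCV_069.

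Glycam1, Ccl19, Cr2, Cxcl13 and Ccl20 were lower. Glycam1 (ENSRNOG00000036826), a mucin-like ligand for L-selectin made by the venules through which lymphocytes enter lymphoid tissue, had no read in any ventilated library and was at 203, 428, 56.0, 473 and 365 in control_chronic. Against a floor of 3 reads in each ventilated library it was at least 83.5-fold lower, and it passed the test (adjusted p = 0.000398), though not with the series term (adjusted p = 0.0732). Ccl19 (ENSRNOG00000015668), the stromal chemokine that holds T cells and dendritic cells, was at 55.1, 14.2 and 49.9 in chronic_VCV and at 696, 404, 367, 358 and 770.0 in control_chronic and fell by 3.81 ± 0.58 (adjusted p = 0.000257). Cr2 (ENSRNOG00000034164), the complement receptor of B cells and follicular dendritic cells, was at 6.12, 0 and 21.1 in chronic_VCV and at 124, 107, 136, 108 and 125 in control_chronic and fell by 4.48 ± 0.76 (adjusted p = 0.000563). The B cell chemokine Cxcl13 was at 19.9, 17.2 and 4.44 in chronic_VCV and at 130.3, 147, 76.4, 143 and 104 in control_chronic and fell by 3.21 ± 0.84 (adjusted p = 0.0125). Ccl20, which epithelium above follicles releases, fell by 2.98 ± 0.83 (adjusted p = 0.0179). No library of one group reached the range of the other in these genes. Cxcl13 did not pass without chronic_VCV_073 (change -2.59, adjusted p = 0.083). Ccl20 did not pass without chronic_VCV_069 or chronic_VCV_073 (change -2.72 and -2.98, adjusted p = 0.0826 and 0.0545). Cr2 (-2.87, adjusted p = 0.0546), Cxcl13 (-1.86, adjusted p = 0.268) and Ccl20 (-1.05, adjusted p = 0.513) did not pass with the series term.

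Of 14 B and plasma cell genes, 7 were lower and 0 higher, and all 14 changes were negative, with a median of -1.50 and a summed level of 7015 to 10020.1 against 10058 to 11999. Fcer2, the low-affinity receptor for immunoglobulin E on B cells, was at 33.7, 4.06 and 57.7 in chronic_VCV and at 194, 157, 218, 197 and 152 in control_chronic and fell by 3.07 ± 0.63 (adjusted p = 0.00265). Cxcr5, the receptor for Cxcl13, was at 13.8, 13.2 and 29.9 in chronic_VCV and at 69.9, 57.5, 53.5, 37.0 and 58.9 in control_chronic and fell by 1.57 ± 0.37 (adjusted p = 0.00632). Cd79a, part of the B cell receptor, was at 209.7, 70.0 and 278 in chronic_VCV and at 705, 613, 553, 592 and 434 in control_chronic and fell by 1.83 ± 0.43 (adjusted p = 0.00617). In Fcer2 and Cd79a the lowest of all 8 libraries was chronic_VCV_069. Cd79a did not pass without chronic_VCV_069 (change -1.24, adjusted p = 0.0772). B cell genes that were lower numbered 3 without chronic_VCV_069. Of 22 T and NK cell genes, 5 were lower and 0 higher, with a median of -0.61 and a summed level of 3005 to 6614 against 5265 to 7877. Cd3e, a subunit of the T cell receptor complex, was at 98.0, 22.3 and 81.0 in chronic_VCV and at 124, 116.98, 126, 158 and 114.59 in control_chronic, and it fell by 1.16 ± 0.38 (adjusted p = 0.0419), with chronic_VCV_069 far below the other libraries. Cd3e did not pass without chronic_VCV_069, control_chronic_113, control_chronic_114, control_chronic_115, control_chronic_116 or control_chronic_117 (change -1.20 to -0.51, adjusted p = 0.052 to 0.387), nor by edgeR (adjusted p = 0.0983). T and NK cell genes that were lower numbered 10 without chronic_VCV_067, 0 without chronic_VCV_069 and 3 without control_chronic_113, control_chronic_114, control_chronic_115 or control_chronic_116. Fcer2 (-1.93, adjusted p = 0.121), Cxcr5 (-0.68, adjusted p = 0.319), Cd79a (-0.89, adjusted p = 0.271) and Cd3e (-0.52, adjusted p = 0.503) did not pass with the series term.

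Airway secretory genes were among those that fell most. Plunc (ENSRNOG00000013859), a secreted antimicrobial protein of upper airways and glands, was at 24.5, 9.13 and 2.22 in chronic_VCV and at 1429.9, 597, 4065, 5849 and 5867 in control_chronic, and it fell by 8.11 ± 1.85 (adjusted p = 0.00542). Scgb3a1 (ENSRNOG00000002718), a secretoglobin of airway cells, was at 15.3, 70.0 and 35.5 in chronic_VCV and at 4394, 1112, 5391, 3021 and 2573 in control_chronic and fell by 6.38 ± 1.34 (adjusted p = 0.00302). Clca1 (ENSRNOG00000013447), which goblet cells secrete with mucus, was at 30.6, 290.1 and 92.1 in chronic_VCV and at 2319.6, 1271, 2276, 1769.8 and 2716 in control_chronic and fell by 4.4 ± 0.71 (adjusted p = 0.000387). The unventilated libraries spread widely here, 597 to 5867 for Plunc, yet all lay above the ventilated ones. Gp2 (ENSRNOG00000015716), a glycoprotein known from secretory granules and from cells that sample antigen, was at 3.06, 168 and 42.2 in chronic_VCV and at 982, 605, 1565, 742 and 1603 in control_chronic and fell by 5.04 ± 1.30 (adjusted p = 0.0118). Gp2 did not pass without chronic_VCV_067 (change -3.58, adjusted p = 0.0872). In healthy_VCV, uninjured lungs under the same ventilation, the 3 libraries whose titles begin with 14 and then healthy_VCV_062, whose title begins with 15 as those of chronic_VCV do, had Plunc at 3140.1, 4218, 607 and 6.32 and Scgb3a1 at 672, 1498, 771 and 45.02. In chronic_noisy, injured lungs under variable ventilation with titles that begin with 14, Plunc was at 1364, 270.2 and 900.2 and Scgb3a1 at 396, 514 and 398. Over all groups, 8 of the 9 libraries of the 15 series had Plunc at 2.22 to 29.34 and Scgb3a1 at 7.84 to 69.98, against 270.21 to 4218 and 368.47 to 1498 in the 8 of the 14 series. The ninth, healthy_noisy_078 (uninjured lung, variable ventilation), had both at 1659. The shift of the 15 series was -6.33 ± 1.44 for Plunc (adjusted p = 0.0442) and -4.3 ± 1.09 for Scgb3a1 (adjusted p = 0.0512). The sulfotransferase Chst9 (ENSRNOG00000015867) fell by 3.53 ± 0.61 (adjusted p = 0.000623), the acyl-CoA synthetase Bucs1 (ENSRNOG00000042084) by 3.48 ± 0.66 (adjusted p = 0.00148), and the transcription factors Dmrt2 (ENSRNOG00000016301) and Dmrt3 (ENSRNOG00000016284) fell by 4.23 ± 0.78 (adjusted p = 0.00114) and 3.98 ± 0.69 (adjusted p = 0.000636). Plunc (-1.78, adjusted p = 0.555), Scgb3a1 (-2.08, adjusted p = 0.341), Gp2 (-1.68, adjusted p = 0.494), Dmrt2 (-2.94, adjusted p = 0.0629) and Dmrt3 (-2.66, adjusted p = 0.053) did not pass with the series term.

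Of 14 genes of goblet cells and glands, 6 were lower and 0 higher, and their summed level was 16434 to 20008 against 23288 to 36720.1 without ventilation. The lectin Reg3g, was at 0 in all ventilated libraries and at 11.5 or less in the others. Muc5b, the main mucin of airway glands, was at 234, 614 and 193 in chronic_VCV and at 3438, 2256, 3552, 1504 and 2462 in control_chronic and fell by 3.05 ± 0.72 (adjusted p = 0.00684). Agr2, a protein disulfide isomerase needed for mucin assembly, was at 85.7, 94.3 and 29.9 in chronic_VCV and at 515, 623, 939.9, 757 and 622 in control_chronic and fell by 3.42 ± 0.43 (adjusted p = 4.28e-05), and Wfdc2, a secreted protease inhibitor, fell by 1.12 ± 0.27 (adjusted p = 0.00797). Of 10 club cell genes, 6 were lower and 1 higher, with a summed level of 205465 to 456179.7 against 438002 to 713495. Scgb3a2, a secretoglobin of club cells, was at 3288, 2279 and 2128 in chronic_VCV and at 9478, 8593, 10529, 8349 and 8179.8 in control_chronic and fell by 1.84 ± 0.28 (adjusted p = 0.000257), whereas the oxygenase Fmo2 was at 13054, 16619 and 9476 in chronic_VCV and at 5459, 3339, 4326, 5425 and 4174 in control_chronic and rose by 1.51 ± 0.26 (adjusted p = 0.000636). Scgb1a1, the club cell secretory protein and among the most abundant messages of the lung, was at 387298, 148468 and 176683 in chronic_VCV and at 496547, 376963, 580622, 631184 and 559500.4 in control_chronic and fell by 1.27 ± 0.35 (adjusted p = 0.0171). Its groups overlapped, since chronic_VCV_067 lay above control_chronic_114. Scgb1a1 did not pass without chronic_VCV_069 or chronic_VCV_073 (change -0.99 and -1.12, adjusted p = 0.115 and 0.0796). Club cell genes that were lower numbered 2 without chronic_VCV_069 or chronic_VCV_073. Of 13 keratin and basal cell genes, 2 were lower, of which Krt15, a keratin of basal cells, fell by 2.16 ± 0.34 (adjusted p = 0.000363). Keratin and basal cell genes that were lower numbered 1 without chronic_VCV_069. Muc5b (-1.16, adjusted p = 0.38) did not pass with the series term.

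Ciliated cell genes were the list with the largest share of members that fell. Of 23 tested, 16 were lower and 0 higher, against 7.9% of all genes, and the median was -1.13. The summed level of the list was 11188 to 15946 in the ventilated and 20510.3 to 28892 in the unventilated libraries. Motile cilia beat through dynein arms on an axoneme that is built of tubulin and stiffened by tektins and radial spokes, and parts of each were lower. The dynein chain Dnai2 was at 288, 282 and 169 in chronic_VCV and at 788, 646, 1021, 597 and 866 in control_chronic and fell by 1.68 ± 0.30 (adjusted p = 0.000849), and Dnai1 fell by 1.20 ± 0.30 (adjusted p = 0.0089). Spag6, of the central apparatus, was at 537, 296 and 267 in chronic_VCV and at 829.32, 866, 1399.6, 1159 and 1102 in control_chronic and fell by 1.59 ± 0.32 (adjusted p = 0.00212). The radial spoke genes Rsph1 and Rsph9 fell by 1.41 ± 0.33 (adjusted p = 0.00605) and 1.22 ± 0.26 (adjusted p = 0.00336). Dynlrb2, a dynein light chain, was at 845, 548 and 409 in chronic_VCV and at 1862, 1439, 2221, 1970.0 and 1621 in control_chronic and fell by 1.65 ± 0.35 (adjusted p = 0.00342).

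In each of these cilia genes the 3 ventilated libraries lay below the 5 unventilated ones, and chronic_VCV_067 was the highest of the 3. The tektin gene Tekt4 fell by 1.40 ± 0.34 (adjusted p = 0.00815), Ccdc19 by 1.37 ± 0.32 (adjusted p = 0.00602), and the tubulin Tuba1a, which other cells also express, by 0.84 ± 0.14 (adjusted p = 0.000453). Tekt2 fell by 1.10 ± 0.26 (adjusted p = 0.00674). It did not pass without chronic_VCV_069 (change -0.90, adjusted p = 0.0591). The count of 16 was 11 without chronic_VCV_069 or chronic_VCV_073. Falls of club, goblet and ciliated cell genes stood in the same libraries. Of 13 keratin and basal cell genes, 2 were lower, Krt15 and Ngfr, which is 15.4% against 7.9% of all genes. The mean log2 level of that list was 7.59 to 8.5 in the ventilated and 7.73 to 8.45 in the unventilated libraries. Cilia genes summed to 10882.4 to 14597.3 in healthy_VCV and 10754.5 to 12643.4 in chronic_noisy. No unventilated library is of the 14 or 15 series, so ventilation and series cannot be told apart. The part of airway content of the tissue pieces in these falls was not tested.

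Promoters of 19 of the 23 ciliated cell genes were found in the RefSeq table for GRCr8, a later build than the one the data were mapped to, as 300 bases around each gene's start. The sequence GTTGCCNNG, part of the X-box to which RFX factors of ciliated cells bind, was sought on both strands. It was in 6 of the 19 promoters, and in 5.16% of all 33469 promoters of the table. Among the 13 members that were lower and had a promoter, 3 held it. The 100 bases around the match are shown for these 3, 5′ to 3′ on the gene's strand with the match in capitals, because they are the genes that both fell and carry it. A match describes these letters and is no evidence of binding. The windows are at chr10:100258919-100259018, plus strand for Dnai2, at chr5:143907702-143907801, minus strand for Tekt2, which holds a pair of matches, and at chr17:86261909-86262008, plus strand for Spag6.
Dnai2: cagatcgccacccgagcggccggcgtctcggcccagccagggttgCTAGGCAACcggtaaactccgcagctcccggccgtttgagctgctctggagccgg
Tekt2: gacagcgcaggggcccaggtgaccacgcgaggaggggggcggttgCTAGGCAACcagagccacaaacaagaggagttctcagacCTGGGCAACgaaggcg
Spag6: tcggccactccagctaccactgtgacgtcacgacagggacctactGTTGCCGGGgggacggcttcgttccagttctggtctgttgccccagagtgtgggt

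Alveolar and endothelial genes changed less. Of 16 alveolar type 1 cell genes, 5 were lower and 1 higher. Pdpn, a surface mucoprotein of these thin cells, was at 6524, 5866 and 8201 in chronic_VCV and at 12472, 10468, 12826, 12277 and 14142 in control_chronic and fell by 0.87 ± 0.13 (adjusted p = 0.000251). Clic5, a chloride intracellular channel protein, fell by 0.84 ± 0.17 (adjusted p = 0.0029) and the guidance molecule Sema3e by 1.02 ± 0.22 (adjusted p = 0.00336), in each case without overlap. The water channel Aqp5 was at 4540.2, 2559.7 and 7293 in chronic_VCV and at 11201, 8019.7, 10224, 11584 and 12235 in control_chronic and fell by 1.26 ± 0.33 (adjusted p = 0.0119). Aqp5 did not pass without chronic_VCV_069 (change -0.87, adjusted p = 0.117). Alveolar type 1 cell genes that were higher numbered 0 without chronic_VCV_069, chronic_VCV_073, control_chronic_113, control_chronic_114 or control_chronic_116. Of 14 alveolar type 2 cell genes, 2 were higher and 0 lower, Slc34a2, the phosphate carrier, with 0.58 ± 0.17 (adjusted p = 0.0259) and the elongase Elovl1 with 0.39 ± 0.12 (adjusted p = 0.0324). Slc34a2 did not pass without chronic_VCV_069, chronic_VCV_073, control_chronic_114 or control_chronic_116 (change 0.45 to 0.56, adjusted p = 0.0505 to 0.152). Elovl1 did not pass without chronic_VCV_067, chronic_VCV_069, control_chronic_113, control_chronic_114 or control_chronic_116 (change 0.33 to 0.39, adjusted p = 0.05 to 0.11). Alveolar type 2 cell genes that were higher numbered 1 without chronic_VCV_067, chronic_VCV_073 or control_chronic_113 and 0 without chronic_VCV_069, control_chronic_114 or control_chronic_116. Sftpb, which spreads surfactant, was at 142023, 104814 and 119219 in chronic_VCV and at 115091, 85548, 107367, 107732 and 108045 in control_chronic, and its change of 0.22 ± 0.23 (adjusted p = 0.562) did not pass. Slc34a2 (0.05, adjusted p = 0.877) and Elovl1 (0.28, adjusted p = 0.254) did not pass with the series term. Sftpb (-0.44, adjusted p = 0.266) had the opposite sign with the series term.

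Of 22 endothelial genes, 4 were lower and 0 higher, with a summed level of 91469 to 103210.0 against 118729.7 to 146342. Car4, a carbonic anhydrase of lung capillaries, was at 1469.5, 663 and 1152 in chronic_VCV and at 2736, 3031, 2601, 3260.3 and 2461 in control_chronic and fell by 1.43 ± 0.29 (adjusted p = 0.00269). Klf2, a transcription factor that laminar flow induces, was at 747, 612 and 372 in chronic_VCV and at 1125, 1550.4, 2659, 2032 and 2196 in control_chronic and fell by 1.73 ± 0.44 (adjusted p = 0.0108). Plvap, which spans the openings of endothelial cells, fell by 0.96 ± 0.26 (adjusted p = 0.0152). Cdh5, the cadherin of endothelial junctions, was at 3207, 5961 and 5899.8 in chronic_VCV and at 6692, 7502, 6699, 7352 and 10448 in control_chronic, and its change of -0.66 ± 0.48 (adjusted p = 0.373) did not pass. Klf2 did not pass without chronic_VCV_073 (change -1.44, adjusted p = 0.07). Plvap did not pass without chronic_VCV_069 (change -0.91, adjusted p = 0.0645). Endothelial genes that were lower numbered 2 without chronic_VCV_073. Cdh5 (0.11, adjusted p = 0.923) had the opposite sign with the series term.

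Channels and pumps that move salt and water across the alveolar wall moved in both directions. Of 19 tested, 6 were higher and 4 lower. Slc26a9, a chloride channel of airway and alveolar epithelium, was at 2149, 1197 and 2579 in chronic_VCV and at 753, 763, 629, 676 and 799 in control_chronic and rose by 1.38 ± 0.20 (adjusted p = 0.000179). The cotransporter Slc12a2, which loads chloride into cells, was at 3565, 3465 and 3816 in chronic_VCV and at 2494, 2524, 2669, 2444 and 2373 in control_chronic and rose by 0.53 ± 0.11 (adjusted p = 0.00291). Among subunits of the epithelial sodium channel, Scnn1b was at 657, 842 and 747 in chronic_VCV and at 1290.0, 952, 1201, 1048 and 1053 in control_chronic and fell by 0.57 ± 0.14 (adjusted p = 0.00739), while Scnn1a was at 15719, 20749 and 15725 in chronic_VCV and at 12605, 7102, 11478, 10561 and 10945 in control_chronic and rose by 0.74 ± 0.19 (adjusted p = 0.0129). The water channel Aqp1, of capillary endothelium, fell by 0.83 ± 0.20 (adjusted p = 0.00804). Scnn1a did not pass without chronic_VCV_069 (change 0.60, adjusted p = 0.0893). Channel and pump genes that were higher numbered 2 without chronic_VCV_069. Of 21 junction genes, 1 was higher and 3 lower. The tight junction protein Cldn1 was at 260.2, 326 and 237 in chronic_VCV and at 63.5, 97.2, 143, 146 and 91.0 in control_chronic and rose by 1.39 ± 0.33 (adjusted p = 0.00732). Junction genes that were lower numbered 5 without chronic_VCV_067, 1 without chronic_VCV_069, control_chronic_115, control_chronic_116 or control_chronic_117 and 0 without chronic_VCV_073. Scnn1a (0.24, adjusted p = 0.5), Aqp1 (-0.47, adjusted p = 0.237) and Cldn1 (0.95, adjusted p = 0.16) did not pass with the series term.

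Matrix genes leaned upward with few calls. Of 36 tested, 5 were higher and 0 lower, and 31 changes were positive, with a median of 0.71. Vcan, a large proteoglycan of provisional matrix, was at 755, 269.8 and 753 in chronic_VCV and at 137, 214, 109.5, 55.5 and 94.2 in control_chronic and rose by 2.26 ± 0.63 (adjusted p = 0.0188). Col6a1, of microfibrillar collagen, was at 5025, 12292 and 8771 in chronic_VCV and at 3591, 3975, 2955, 3141 and 4504 in control_chronic and rose by 1.18 ± 0.28 (adjusted p = 0.0065). Col1a1, of fibrillar collagen, was at 9725, 47131 and 13456 in chronic_VCV and at 7334, 12272, 5633, 5709.7 and 10800.3 in control_chronic, and its change of 1.21 ± 0.43 (adjusted p = 0.0562) did not pass. Collagen values were highest in chronic_VCV_069. Vcan did not pass without chronic_VCV_067, chronic_VCV_073 or control_chronic_116 (change 2.01, 2.01 and 2.01, adjusted p = 0.0692, 0.083 and 0.0501). Col6a1 did not pass without chronic_VCV_069 (change 0.89, adjusted p = 0.0695). Matrix genes that were higher numbered 11 without chronic_VCV_067, 3 without chronic_VCV_069 and 8 without control_chronic_117. By edgeR 12 matrix genes were higher. Pdgfra, the receptor that marks lung fibroblasts, was at 4892, 8601 and 4839 in chronic_VCV and at 1922, 1721, 1956.11, 2189 and 1819.5 in control_chronic and rose by 1.62 ± 0.27 (adjusted p = 0.000498), and among 16 fibroblast genes 2 were higher and 0 lower. Fibroblast genes that were higher numbered 1 when any library but chronic_VCV_067 was left out. Col1a1 (2.02, adjusted p = 0.0245) passed with the series term.

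Of 18 matrix proteases and inhibitors, 4 were higher and 1 lower. Mmp9, the gelatinase of neutrophils and macrophages, was at 706, 272 and 477 in chronic_VCV and at 63.5, 77.3, 43.3, 109 and 11.8 in control_chronic and rose by 3.17 ± 0.56 (adjusted p = 0.000761). Its inhibitor Timp1 was at 2065, 730.2 and 1055 in chronic_VCV and at 416, 642, 408, 671 and 789 in control_chronic, a change of 1.04 ± 0.48 (adjusted p = 0.146) that did not pass. Protease genes that were higher numbered 1 without chronic_VCV_069. Of 21 coagulation and fibrinolysis genes, 4 were higher and 0 lower, although the list's median was -0.24. Plaur, the receptor for urokinase, was at 419, 114.60 and 111 in chronic_VCV and at 47.7, 35.7, 34.4, 75.7 and 20.4 in control_chronic and rose by 2.13 ± 0.42 (adjusted p = 0.00206), and Procr, the endothelial receptor for protein C, rose by 1.19 ± 0.29 (adjusted p = 0.00752). In Plaur chronic_VCV_067 stood far above the other 2 ventilated libraries, which in turn stood above all unventilated ones. Timp1 (2.61, adjusted p = 0.00651) passed with the series term.

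Immediate early genes, which cells switch on within minutes of growth factor signals or mechanical strain, differed strongly among the ventilated libraries. Egr1, a zinc finger transcription factor, was at 20309.8, 2716 and 710.01 in chronic_VCV and at 419, 751, 683, 1494 and 1676 in control_chronic. Fos, a subunit of the transcription factor AP-1, was at 2787, 723 and 276 in chronic_VCV and at 232, 331, 348, 829.37 and 663 in control_chronic, and the stress factor Atf3 was at 13865, 358 and 696 in chronic_VCV and at 337, 335, 332, 669.5 and 707 in control_chronic. In all 3 genes chronic_VCV_067 was highest by far and chronic_VCV_073 lay within the unventilated range. None passed, with changes of 1.94 ± 0.70 (adjusted p = 0.0631), 0.94 ± 0.66 (adjusted p = 0.352) and 1.76 ± 0.68 (adjusted p = 0.0804). Egr1 without chronic_VCV_073 was at 3.07 (adjusted p = 0.00661), Atf3 without chronic_VCV_069 at 2.80 (adjusted p = 0.0116), and edgeR called both (adjusted p = 0.00577 and 0.00226).

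Of 21 immediate early genes, 6 were higher and 0 lower. Those that passed with every library left out in turn were Fosl1, Junb, Myc and Gadd45b. Fosl1, an AP-1 subunit, was at 1248, 54.8 and 189 in chronic_VCV and at 28.6, 39.6, 17.8, 32.0 and 24.6 in control_chronic and rose by 3.05 ± 0.57 (adjusted p = 0.00137). Junb was at 17086, 4787 and 4367 in chronic_VCV and at 2145, 2294, 1914, 3476 and 2473 in control_chronic and rose by 1.56 ± 0.32 (adjusted p = 0.00269), and the growth regulator Myc was at 2879, 802 and 984 in chronic_VCV and at 423, 452, 545, 627 and 419.8 in control_chronic and rose by 1.43 ± 0.27 (adjusted p = 0.00153). Gadd45b, a stress gene that NF-kB and TGF-beta induce, was at 5624, 3887 and 2802 in chronic_VCV and at 1960.5, 1529, 1642, 2246 and 1483 in control_chronic and rose by 1.17 ± 0.20 (adjusted p = 0.000536). The order of the 3 ventilated libraries differed between these genes, but chronic_VCV_067 was highest in each. Immediate early genes that were higher numbered 11 without chronic_VCV_073. By edgeR 12 were higher.

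Growth factor signalling moved in the same direction. Of 20 EGF receptor ligands and MAPK feedback genes, 6 were higher and 0 lower, and all 20 changes were positive. Dusp4, a phosphatase that ERK signalling induces, was at 346, 453 and 371 in chronic_VCV and at 111, 137, 146, 68.97 and 202 in control_chronic and rose by 1.62 ± 0.29 (adjusted p = 0.000968). Spry1, a feedback inhibitor of receptor tyrosine kinases, was at 3146, 2789.9 and 2059 in chronic_VCV and at 1058, 1269, 1303, 1401 and 1459.7 in control_chronic and rose by 1.02 ± 0.17 (adjusted p = 0.000552). For the ligand Areg the ventilated values were 1087, 63.9 and 204 against 35.0, 45.6, 70.0, 85.8 and 58.9 without ventilation, a change of 2.09 ± 0.61 (adjusted p = 0.0243). Areg did not pass without chronic_VCV_067, chronic_VCV_073 or control_chronic_113 (change 1.01, 2.21 and 1.92, adjusted p = 0.225, 0.053 and 0.0532). EGF and MAPK genes that were higher numbered 3 without chronic_VCV_067. Of 16 stretch and YAP targets, 2 were higher and 1 lower. Ctgf, a matricellular protein that stretch and TGF-beta induce, was at 4759, 10245 and 5774 in chronic_VCV and at 2523, 4169, 4439, 3392 and 4526 in control_chronic and rose by 0.82 ± 0.22 (adjusted p = 0.015), and it was highest in chronic_VCV_069. Its relative Cyr61 was at 10536, 4622 and 1908 in chronic_VCV and at 1192, 1648, 1695, 2340.1 and 2626 in control_chronic, a change of 1.31 ± 0.46 (adjusted p = 0.058) that did not pass. Another relative, Wisp2, fell by 1.63 ± 0.35 (adjusted p = 0.00388). Ctgf did not pass without chronic_VCV_069 (change 0.49, adjusted p = 0.159). Stretch and YAP genes that were higher numbered 1 without chronic_VCV_067, control_chronic_113, control_chronic_114, control_chronic_115, control_chronic_116 or control_chronic_117. Areg (2.19, adjusted p = 0.0913) and Ctgf (0.77, adjusted p = 0.0953) did not pass with the series term. Cyr61 (2.06, adjusted p = 0.0347) passed with the series term.

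Tnfrsf12a, the receptor for the cytokine TWEAK, was at 3308, 433 and 1259 in chronic_VCV and at 321, 406, 337, 370.1 and 341 in control_chronic and rose by 1.78 ± 0.38 (adjusted p = 0.00329). Skeletal actin, Acta1, was at 259, 138 and 267 in chronic_VCV and at 54.0, 39.6, 30.6, 10.1 and 51.4 in control_chronic and rose by 2.68 ± 0.41 (adjusted p = 0.000255), with no overlap. Of 22 Wnt pathway genes, 2 were higher and 1 lower, near the 6.89% and 7.9% of all genes. The receptor Fzd5 rose by 1.07 ± 0.23 (adjusted p = 0.00386). Higher Wnt genes numbered 1 without chronic_VCV_069. Lower ones numbered 0 without it and 2 without chronic_VCV_073 or control_chronic_113.

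**Figure D2:**
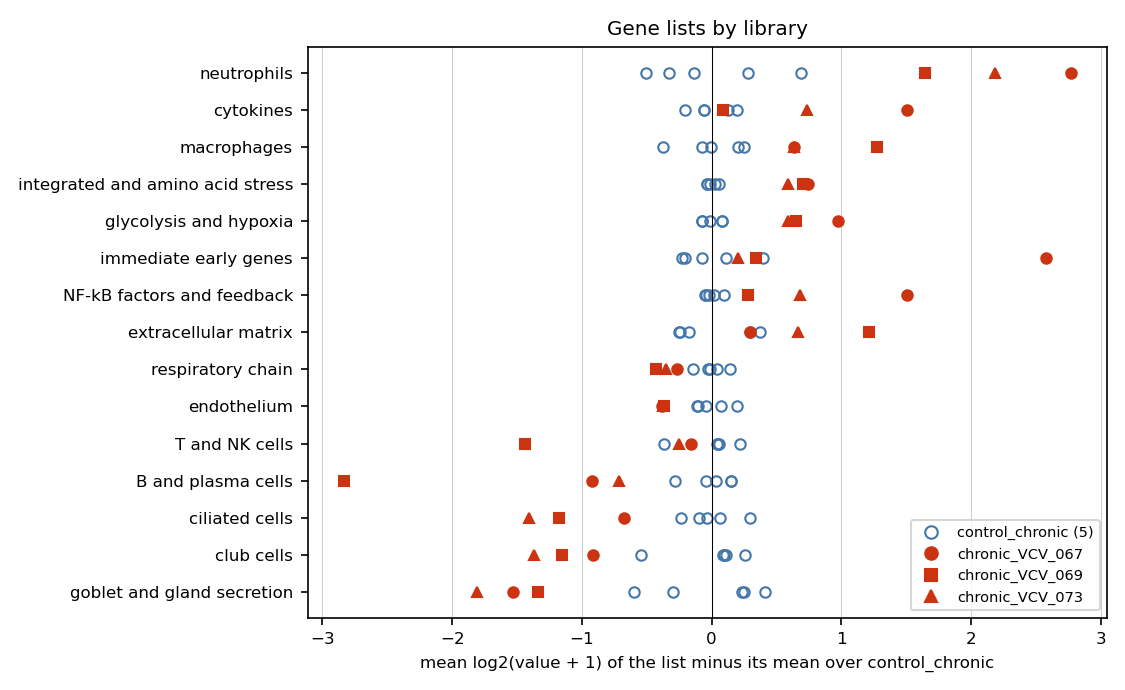
Mean log2(value + 1) of the tested members of 15 gene lists in each library, minus the mean over the 5 control_chronic libraries (open circles), with 1 filled symbol per chronic_VCV library. Immediate early genes are far higher in chronic_VCV_067 than in the other ventilated libraries, and B and T cell genes are lowest in chronic_VCV_069.

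Genes of the integrated stress response, by which cells short of amino acids or with stressed endoplasmic reticulum raise amino acid transport and synthesis through Atf4, were higher. Of 24 tested, 13 were higher, against 6.89% of all genes, and 0 lower, with a median of 0.63. Slc7a5, a transporter of large neutral amino acids, was at 1165, 1417 and 1110.5 in chronic_VCV and at 311, 361, 373, 306 and 478 in control_chronic and rose by 1.76 ± 0.26 (adjusted p = 0.000181). Trib3, a pseudokinase that Atf4 and its partner induce, was at 286, 899.5 and 455 in chronic_VCV and at 149, 141, 169, 139.6 and 144 in control_chronic and rose by 1.72 ± 0.31 (adjusted p = 0.000979). Nupr1, a small chromatin protein of stressed cells, was at 3730.4, 4113 and 3102 in chronic_VCV and at 1099, 962, 1356, 1179 and 1569 in control_chronic and rose by 1.58 ± 0.27 (adjusted p = 0.000608). In these 3 genes the ventilated libraries stood clear of the unventilated ones, and Trib3 was highest in chronic_VCV_069. The cationic amino acid transporter Slc7a1 rose by 1.41 ± 0.29 (adjusted p = 0.00247) and the factor Atf5 by 0.73 ± 0.16 (adjusted p = 0.00364). Trib3 (0.78, adjusted p = 0.134) and Atf5 (0.38, adjusted p = 0.195) did not pass with the series term.

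Atf4 itself was at 15609, 6941 and 6884 in chronic_VCV and at 5332, 4949, 5156, 7059 and 5083 in control_chronic and rose by 0.73 ± 0.21 (adjusted p = 0.0239), and its target Ddit3 (CHOP) rose by 0.72 ± 0.18 (adjusted p = 0.0092). Atf4 did not pass without chronic_VCV_067 (change 0.34, adjusted p = 0.226). Ddit3 did not pass without chronic_VCV_067 (change 0.53, adjusted p = 0.067). Asns, the asparagine synthetase that Atf4 is known to induce, was at 643, 771 and 775 in chronic_VCV and at 645, 609, 629, 648 and 625 in control_chronic, and its change of 0.20 ± 0.15 (adjusted p = 0.37) did not pass. Higher stress genes numbered 5 without chronic_VCV_067. Chaperones of the endoplasmic reticulum moved little: of 22 genes of chaperones and degradation, 2 were higher and 0 lower. Edem1, which sends misfolded glycoproteins to degradation, rose by 1.05 ± 0.23 (adjusted p = 0.00356), from 964 to 1338 in control_chronic to higher values in every ventilated library, up to 3540.4 in chronic_VCV_069. The chaperone Hspa5 (BiP) was at 10966, 9239.9 and 17903 in chronic_VCV and at 8414, 8426, 8273, 8467 and 13686 in control_chronic, a change of 0.40 ± 0.27 (adjusted p = 0.333) that did not pass. Higher endoplasmic reticulum genes numbered 1 without chronic_VCV_073, control_chronic_114, control_chronic_115 or control_chronic_116. Of 25 heat shock and chaperonin genes 2 were higher, near the 6.89% of all genes. Hspa1a, the inducible Hsp70, was at 25888, 1886 and 2635 in chronic_VCV and at 1395, 761, 1007, 887 and 1738 in control_chronic, a change of 2.19 ± 0.78 (adjusted p = 0.058) that did not pass and that edgeR called (adjusted p = 0.00861). Higher heat shock genes numbered 0 without chronic_VCV_067 or control_chronic_113 and 1 without chronic_VCV_069, control_chronic_114, control_chronic_115 or control_chronic_116. Ddit3 (0.59, adjusted p = 0.112) did not pass with the series term. Hspa5 (1.06, adjusted p = 0.04) and Hspa1a (4.03, adjusted p = 0.013) passed with the series term.

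Promoters of all 24 stress genes were found in the same RefSeq table. The sequence TGATGNAA, the core to which Atf4 with its partners binds, was sought on both strands and was in 5 of the 24, against 3.98% of all promoters. It is 1 of 6 motifs searched, and 4 others were GGGANTTCC, bound by NF-kB, TCACNCCAC, a sterol response core, and CACGTG and TTATGTAA, an E-box and a D-box of clock genes. GGGANTTCC was in 4 of 15 promoters of NF-kB factors and feedback genes, against 1.64% of all promoters. TCACNCCAC was in 0 of the 17 cholesterol gene promoters found, against 1.12%. CACGTG was in 2 and TTATGTAA in 1 of 14 clock gene promoters, against 6.42% and 0.893%. Of the 13 stress genes that were higher, 4 held TGATGNAA, and 100 bases around the match are shown for them with the match in capitals. Chac1, an enzyme that degrades glutathione, rose by 1.15 ± 0.35 (adjusted p = 0.0297) and is the member of these 4 that has not been described above. Chac1 did not pass without chronic_VCV_067, chronic_VCV_073, control_chronic_116 or control_chronic_117 (change 0.91 to 1.22, adjusted p = 0.0556 to 0.129). The windows, again 5′ to 3′ on the gene's strand in GRCr8, are at chr3:161275501-161275600, minus strand for Trib3, at chr3:126795918-126796017, plus strand for Chac1, at chr12:11664412-11664511, plus strand for Slc7a1 and at chr1:190645903-190646002, minus strand for Nupr1. Chac1 (0.78, adjusted p = 0.286) did not pass with the series term.
Trib3: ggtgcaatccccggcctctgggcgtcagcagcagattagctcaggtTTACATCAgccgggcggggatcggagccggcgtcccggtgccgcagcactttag
Chac1: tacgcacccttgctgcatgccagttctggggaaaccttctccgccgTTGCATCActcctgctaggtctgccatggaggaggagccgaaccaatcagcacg
Slc7a1: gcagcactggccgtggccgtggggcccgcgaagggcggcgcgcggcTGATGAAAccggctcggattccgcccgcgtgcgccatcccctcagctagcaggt
Nupr1: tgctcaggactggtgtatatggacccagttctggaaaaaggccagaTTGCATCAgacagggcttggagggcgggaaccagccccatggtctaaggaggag

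Metabolic genes split by pathway. Of 26 genes of glycolysis and the response to low oxygen, 10 were higher and 0 lower, and the count stayed between 8 and 11 with each library left out. Slc16a3, the lactate exporter, was at 727, 435 and 464 in chronic_VCV and at 127, 145, 171, 155 and 146 in control_chronic and rose by 1.83 ± 0.23 (adjusted p = 4.15e-05). Pfkfb3, which makes the activator of glycolysis, was at 1597, 2370.1 and 968 in chronic_VCV and at 388, 331, 399.9, 513 and 453 in control_chronic and rose by 1.90 ± 0.42 (adjusted p = 0.00444). Slc2a3, a glucose transporter, was at 189.8, 148 and 245 in chronic_VCV and at 66.7, 39.6, 52.2, 52.1 and 59.97 in control_chronic and rose by 1.82 ± 0.38 (adjusted p = 0.0028). The hexokinases Hk2 and Hk3 rose by 1.56 ± 0.34 (adjusted p = 0.00359) and 1.51 ± 0.31 (adjusted p = 0.00238), the latter a form of myeloid cells. P4ha2, a collagen hydroxylase that low oxygen induces, rose by 1.05 ± 0.15 (adjusted p = 0.000147) and Ndrg1 by 0.74 ± 0.16 (adjusted p = 0.00357). In all of these genes the groups were apart. Hif3a, a member of the hypoxia-inducible factor family, rose by 2.54 ± 0.62 (adjusted p = 0.00852) with 1 overlap, control_chronic_113 at 44.5 against chronic_VCV_073 at 38.8. Adm, the vasodilator adrenomedullin, was at 1087, 279.9 and 376 in chronic_VCV and at 127, 184, 86.6, 159.8 and 215 in control_chronic and rose by 1.71 ± 0.42 (adjusted p = 0.00827). Adm did not pass without chronic_VCV_067 (change 1.13, adjusted p = 0.0748). Hif3a (1.85, adjusted p = 0.148) did not pass with the series term.

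Genes of the respiratory chain were lower by small steps. Of 70 nuclear genes for its complexes and for ATP synthase, 27 were lower, against 7.9% of all genes, and 0 higher. In 39 of them, against 12.2% of all genes, every ventilated library lay below every unventilated one. Of the changes 68 were negative, with a median of -0.35. Ndufb10, of complex I, was at 1061, 992 and 1094 in chronic_VCV and at 2100.3, 1721, 1494, 1785 and 1691 in control_chronic and fell by 0.74 ± 0.12 (adjusted p = 0.000472). Sdhc, of complex II, was at 1906, 1811 and 1946 in chronic_VCV and at 2536, 2456, 2548, 2682 and 2487 in control_chronic and fell by 0.43 ± 0.09 (adjusted p = 0.0022). Atp5b, the catalytic subunit of ATP synthase, was at 11626, 13172 and 13045 in chronic_VCV and at 17714, 14858, 15786, 16502 and 15666 in control_chronic and fell by 0.35 ± 0.09 (adjusted p = 0.00996). The ventilated values of these genes lay close together and below the unventilated ones. Further members that passed with each library left out in turn were Ndufa4, Ndufa12, Ndufs3, Atp5j, Atp5j2, Atp5c1 and Cox7b, with changes from -0.57 to -0.40. Of these, Ndufa12, Atp5j2, Atp5c1 and Cox7b did not pass with the series term (adjusted p = 0.147 to 0.287). The count of 27 was 11 without chronic_VCV_069. Of 64 cytosolic ribosomal protein genes, 4 were lower and 0 higher, and of 33 proteasome genes, 2 were lower and 0 higher. Both shares are close to the 7.9% of all genes. Lower ribosomal protein genes numbered 8 without chronic_VCV_067 or control_chronic_117, 0 without chronic_VCV_069 and 1 without chronic_VCV_073. Proteasome genes that were lower numbered 1 without chronic_VCV_067, control_chronic_114, control_chronic_115 or control_chronic_117, 0 without chronic_VCV_069, control_chronic_113 or control_chronic_116 and 5 without chronic_VCV_073. Atp5b (-0.18, adjusted p = 0.28) did not pass with the series term.

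Cholesterol genes leaned upward. Of 25 genes of synthesis and uptake, 5 were higher and 0 lower, and 23 changes were positive with a median of 0.36. Insig1, the sterol sensor that holds back SREBP, was at 2331, 1826 and 1598 in chronic_VCV and at 852, 771, 1173, 717 and 1019.5 in control_chronic and rose by 1.09 ± 0.20 (adjusted p = 0.000998). Lss, which closes the sterol rings, was at 684, 712 and 702 in chronic_VCV and at 369, 393, 559, 313 and 363 in control_chronic and rose by 0.84 ± 0.22 (adjusted p = 0.0122). Cholesterol genes that were higher numbered 3 without chronic_VCV_073. Insig1 (0.59, adjusted p = 0.1) did not pass with the series term.

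Of 15 circadian clock genes, 5 were higher and 0 lower, with a median of 0.67. Per1, a repressor of the clock that glucocorticoids also induce, was at 9091, 7159 and 5014 in chronic_VCV and at 1802, 1364, 2229, 4152 and 991 in control_chronic and rose by 1.88 ± 0.37 (adjusted p = 0.00188). Per2 was at 1313, 663 and 437 in chronic_VCV and at 261, 299, 388, 319.6 and 229 in control_chronic and rose by 1.30 ± 0.29 (adjusted p = 0.00443), and Per3 rose by 1.31 ± 0.29 (adjusted p = 0.00443). The 3 Per genes had no overlap, though control_chronic_116 at 4152 for Per1 came near chronic_VCV_073 at 5014. Nr1d1, a repressor in opposite phase to the clock's activators, was at 1702, 3390.3 and 2021 in chronic_VCV and at 1064, 1291, 1421, 742 and 719.7 in control_chronic and rose by 1.17 ± 0.39 (adjusted p = 0.044). Nr1d1 did not pass without chronic_VCV_069, chronic_VCV_073, control_chronic_113, control_chronic_116 or control_chronic_117 (change 0.88 to 1.25, adjusted p = 0.062 to 0.217). Clock genes that were higher numbered 3 without control_chronic_113. The time of day at which lungs were taken is not given in the sources used here. Of 19 glucocorticoid response genes, 4 were higher and 1 lower. Hsd11b2, the enzyme that inactivates corticosterone, was at 23.0, 10.1 and 15.5 in chronic_VCV and at 118, 85.2, 25.5, 85.8 and 109 in control_chronic and fell by 2.22 ± 0.49 (adjusted p = 0.00413), with the highest ventilated value at 23.0 and the lowest unventilated one at 25.5. The chaperone Fkbp5 rose by 1.48 ± 0.43 (adjusted p = 0.0239). Fkbp5 did not pass without chronic_VCV_069, control_chronic_114 or control_chronic_115 (change 1.03, 1.30 and 1.26, adjusted p = 0.173, 0.0562 and 0.0621). Glucocorticoid genes that were higher numbered 2 without chronic_VCV_067, chronic_VCV_069 or control_chronic_114, 9 without chronic_VCV_073 and 7 without control_chronic_116. Per1 (1.52, adjusted p = 0.0527), Per3 (1.17, adjusted p = 0.06), Nr1d1 (0.41, adjusted p = 0.604) and Fkbp5 (1.38, adjusted p = 0.13) did not pass with the series term.

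Redox and detoxifying genes did not move as one. Of 21 NRF2 and redox genes, 6 were higher and 1 lower. Sod2, the mitochondrial superoxide dismutase, was at 7491, 5463 and 7183 in chronic_VCV and at 2602, 2373, 2756, 2767 and 2657 in control_chronic and rose by 1.34 ± 0.46 (adjusted p = 0.0495). Hmox1, haem oxygenase 1, was at 3896, 1598 and 1409 in chronic_VCV and at 1020.0, 1035, 825, 922 and 784 in control_chronic and rose by 1.18 ± 0.38 (adjusted p = 0.041). With any 1 of the 8 libraries left out, Sod2 did not pass (change 1.25 to 1.48, adjusted p = 0.0679 to 0.13). Hmox1 did not pass when any library but chronic_VCV_073 was left out (change 0.72 to 1.36, adjusted p = 0.051 to 0.241). Redox genes that were higher numbered 1 without chronic_VCV_067, control_chronic_113, control_chronic_114 or control_chronic_116, 3 without chronic_VCV_069 and 2 without control_chronic_115 or control_chronic_117. Of 21 genes of xenobiotic and aldehyde metabolism, 3 were higher and 4 lower. Higher xenobiotic genes numbered 1 without chronic_VCV_069, and lower ones 1 without chronic_VCV_069 or chronic_VCV_073.

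Vasoactive genes moved in both directions, 4 higher and 5 lower of 23. Ltb4r, the leukotriene B4 receptor of neutrophils, was at 199, 160.2 and 119.8 in chronic_VCV and at 54.0, 39.6, 40.8, 21.9 and 59.97 in control_chronic and rose by 1.91 ± 0.44 (adjusted p = 0.00614), and Lta4h, which makes that leukotriene, was at 2463, 3250.3 and 2189 in chronic_VCV and at 3711, 3672, 3938, 4238 and 3531 in control_chronic and fell by 0.55 ± 0.12 (adjusted p = 0.00313). Bdkrb2, the bradykinin receptor, was at 99.5, 144 and 118 in chronic_VCV and at 41.3, 33.7, 59.9, 30.3 and 50.3 in control_chronic and rose by 1.49 ± 0.21 (adjusted p = 0.000138). The groups were apart in all 3 genes. Of 19 prostaglandin and leukotriene genes, 2 were higher and 1 lower, and both shares of the vasoactive list were above the 6.89% and 7.9% of all genes. Prostaglandin and leukotriene genes that were higher numbered 1 without chronic_VCV_069, chronic_VCV_073 or control_chronic_113 and 4 without control_chronic_117. Vasoactive genes that were lower numbered 3 without chronic_VCV_067, control_chronic_113, control_chronic_115 or control_chronic_116, 2 without chronic_VCV_069 and 1 without chronic_VCV_073.

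Other lists changed little or moved with single libraries. Of 29 cell division genes, 1 was higher and 2 lower, and Aurkb, a mitotic kinase, was at 339.8, 274 and 345 in chronic_VCV and at 473, 779, 1560.0, 1682 and 891 in control_chronic and fell by 1.61 ± 0.35 (adjusted p = 0.00389). Cell division genes that were lower numbered 1 without chronic_VCV_069, chronic_VCV_073 or control_chronic_115. Of 24 interferon response genes, 1 was higher, below the 6.89% of all genes. That gene, Ifit3, was at 1667, 957 and 1812 in chronic_VCV and at 232, 266, 267, 357 and 288 in control_chronic and rose by 2.35 ± 0.49 (adjusted p = 0.00293). Of 13 erythroid genes, 3 were lower, and their summed level was 31900 to 94336 in the ventilated and 79852 to 135481 in the unventilated libraries. Bpgm, an enzyme of red cells, fell by 0.80 ± 0.17 (adjusted p = 0.00409), and the beta globin Hbb-b1 was at 3828, 1179 and 1989 in chronic_VCV and at 6813, 6311, 4214, 5483 and 4498 in control_chronic and fell by 1.37 ± 0.37 (adjusted p = 0.0158). Hbb-b1 did not pass without chronic_VCV_069 or chronic_VCV_073 (change -0.96 and -1.34, adjusted p = 0.136 and 0.0545). Erythroid genes that were lower numbered 6 without chronic_VCV_067 and 1 without chronic_VCV_069 or chronic_VCV_073. Aurkb (-1.32, adjusted p = 0.0721), Bpgm (-0.72, adjusted p = 0.0556) and Hbb-b1 (-0.86, adjusted p = 0.252) did not pass with the series term.

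Further lists with 0 lower were mast cells and eosinophils (1 of 11 higher) and smooth muscle and pericytes (2 of 10). TGF-beta, activin and BMP genes (3 of 25), transfer RNA synthetases (3 of 19) and antigen presentation (1 of 21) followed. All shares but the last were above the 6.89% of all genes. Higher smooth muscle genes numbered 0 without chronic_VCV_069 and 1 without chronic_VCV_073 or control_chronic_116. TGF-beta family genes that were higher numbered 1 without chronic_VCV_069, chronic_VCV_073, control_chronic_114, control_chronic_115 or control_chronic_116. Higher synthetase genes numbered 1 without chronic_VCV_073. Mast cell genes that were higher numbered 2 without chronic_VCV_067 or control_chronic_114 and 0 without chronic_VCV_069, chronic_VCV_073, control_chronic_113 or control_chronic_117. Antigen presentation genes that were higher numbered 0 without chronic_VCV_073, control_chronic_115, control_chronic_116 or control_chronic_117.

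Genes of heart muscle, a tissue that extends along the pulmonary veins in rats, were low in both groups. Of 15 tested, 1 was higher and 2 lower, and 8 had every ventilated library below every unventilated one. Their summed level was 641 to 1283 against 1798 to 2674, and the part of vein wall in other results was not tested. Myh6 (ENSRNOG00000025757), the myosin heavy chain of atrial muscle, was at 3.06, 10.1 and 5.55 in chronic_VCV and at 213, 137, 150.3, 145 and 92.1 in control_chronic and fell by 4.43 ± 1.48 (adjusted p = 0.0455). Tnnt2, cardiac troponin T, was at 84.2, 71.0 and 53.2 in chronic_VCV and at 69.9, 116.98, 104, 104 and 87.8 in control_chronic, and its change of -0.47 ± 0.61 (adjusted p = 0.637) did not pass. Tnnc1, troponin C of heart and slow muscle, was at 64.3, 25.4 and 33.3 in chronic_VCV and at 22.2, 7.93, 6.37, 10.1 and 7.5 in control_chronic and rose by 1.86 ± 0.58 (adjusted p = 0.0335). With any 1 of the 8 libraries left out, Myh6 did not pass (change -4.80 to -4.07, adjusted p = 0.0554 to 0.117), nor by edgeR (adjusted p = 0.0691). Tnnc1 did not pass without chronic_VCV_067, chronic_VCV_073, control_chronic_114, control_chronic_115, control_chronic_116 or control_chronic_117 (change 1.48 to 1.95, adjusted p = 0.0547 to 0.134), nor by edgeR (adjusted p = 0.0598). Lower heart muscle genes numbered 0 without chronic_VCV_069 and 1 without any other of the 8 libraries. Myh6 (1.64, adjusted p = 0.38) and Tnnt2 (1.98, adjusted p = 0.0204) had the opposite sign with the series term.

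The RNA component RNase_MRP, a small noncoding RNA without the usual poly(A) tail, was at 237, 88.2 and 66.6 in chronic_VCV and at 4108, 2379, 164, 683 and 434 in control_chronic and fell by 2.94 ± 0.89 (adjusted p = 0.0288). It was highest in control_chronic_113 and control_chronic_114, the least deep libraries. RNase_MRP did not pass without chronic_VCV_069, chronic_VCV_073, control_chronic_113 or control_chronic_114 (change -2.77 to -2.37, adjusted p = 0.0669 to 0.116). RNase_MRP (-2.11, adjusted p = 0.252) did not pass with the series term.

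**Figure D3:**
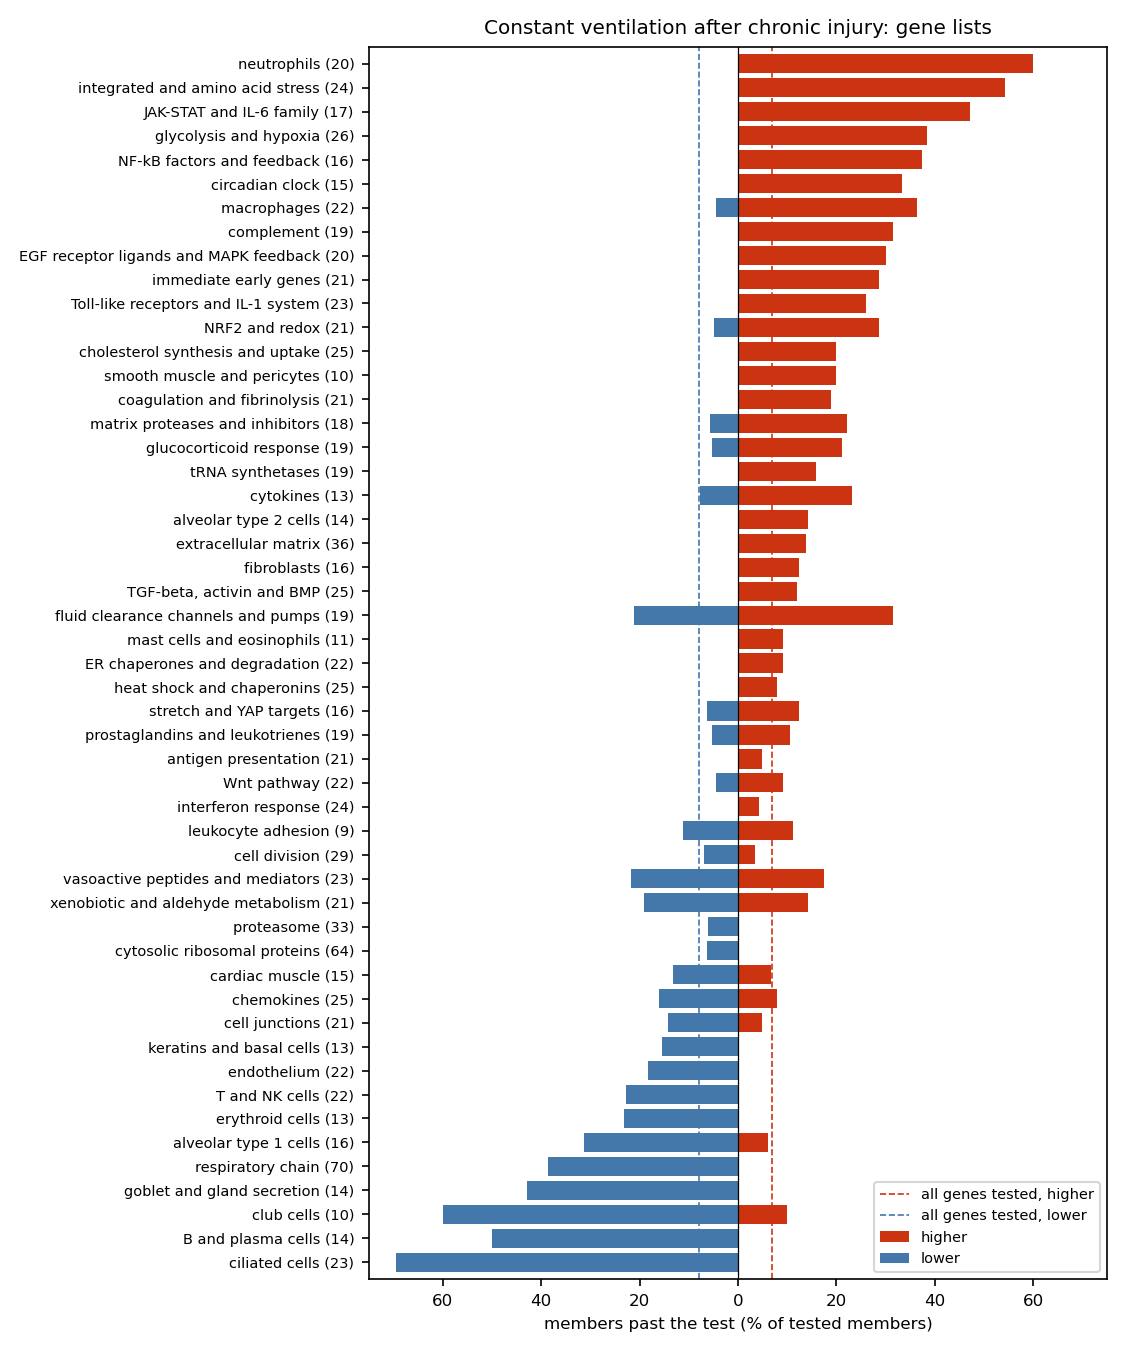
Share of tested members that were higher (to the right) or lower (to the left) in chronic_VCV than in control_chronic, in percent, for each gene list, with the number tested in parentheses. Dashed lines give the shares over all genes tested, 6.89% higher and 7.9% lower, and ciliated and club cell genes stand farthest to the left and neutrophil genes farthest to the right.

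Constant ventilation of uninjured lungs offers a comparison that shares no library with this one. Healthy_VCV minus control_blank was subtracted from the change in chronically injured lungs, and the difference was tested in the same fit. Of 14908 genes, 3564 passed, 23.9%, of which 1479 were higher and 2085 lower after chronic injury. By edgeR the share of higher genes was 53.3% in place of 41.5%. The count was 943 without control_blank_016 and 1150 without chronic_VCV_067. Titles begin with 12 in control_blank and with 14 or 15 in healthy_VCV, so these differences cannot be told apart from those of the number series. With the series term 1113 genes passed. Within healthy_VCV the only library of the 15 series is healthy_VCV_062. It was the lowest of the 4 in 35.2% of the 1178 genes that were lower after chronic injury, against 23.1% of all genes, and the highest in 27.0% of the 1027 that were higher, against 21.8%. By direction, 9.92% of all genes had a higher and 14% a lower difference. In uninjured lungs 29.3% of all genes were higher and 28.1% lower with ventilation, far above the shares after chronic injury, so counts of calls are not on 1 footing between the 2 kinds of lung.

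Neutrophil genes rose in both kinds of lung, 12 of 20 after chronic injury against 6.89% of all genes, and 16 of 20 in uninjured lungs against 29.3%. Prok2 rose by 5.72 ± 0.53 (adjusted p = 2.75e-07) in uninjured lungs, and the difference of -0.71 ± 0.73 (adjusted p = 0.503) did not pass. For S100a8 the uninjured change was 2.97 ± 0.52 (adjusted p = 5.89e-05) and the difference 1.06 ± 0.72 (adjusted p = 0.291), also not past the test. Of the 20 genes, 2 had a lower difference and 0 a higher one, against 14% and 9.92% of all genes. The 2 became 0 without control_blank_016, healthy_VCV_060 or chronic_VCV_067 and 1 without control_blank_021, healthy_VCV_057, healthy_VCV_062, chronic_VCV_069, control_chronic_113, control_chronic_114, control_chronic_115 or control_chronic_116.

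Several genes that rose after chronic injury did not rise with ventilation of uninjured lungs. Ctgf changed by -1.51 ± 0.23 (adjusted p = 1.27e-05) in uninjured lungs, a difference of 2.32 ± 0.32 (adjusted p = 0.00212). It was at 1295, 1652, 1743 and 1663 in healthy_VCV against 3610.4, 4399 and 5710.2 in control_blank, below every control_blank library, whereas after chronic injury it lay above every control_chronic library. Acta1 changed by -1.11 ± 0.43 (adjusted p = 0.0295) in uninjured lungs, a difference of 3.79 ± 0.59 (adjusted p = 0.00213). Tnfrsf12a was at 250.2, 273, 237 and 265 in healthy_VCV against 585, 452 and 392 in control_blank, a change of -0.87 ± 0.39 (adjusted p = 0.0611) that did not pass, and the difference was 2.65 ± 0.55 (adjusted p = 0.00519).

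Gng8, a G protein gamma subunit, fell by 2.48 ± 0.45 (adjusted p = 7.73e-05) in uninjured lungs and did not pass after chronic injury, with 0.08 ± 0.43 (adjusted p = 0.923). The difference was 2.56 ± 0.62 (adjusted p = 0.00847). The monocyte chemokine Ccl7 differed by 3.37 ± 1.15 (adjusted p = 0.037) and Tnnc1 by 2.63 ± 0.84 (adjusted p = 0.0279), while neither passed in uninjured lungs. Ccl7 did not pass after chronic injury either, with a change of 1.52. It was at 217, 19.3 and 52.1 in chronic_VCV and at 15.9, 31.7, 17.8, 16.8 and 23.6 in control_chronic. As a difference, Ccl7 did not pass without control_blank_016, control_blank_021, healthy_VCV_057, healthy_VCV_062, chronic_VCV_067, chronic_VCV_073, control_chronic_113, control_chronic_115 or control_chronic_117 (change 2.46 to 3.48, adjusted p = 0.0503 to 0.157). Tnnc1 did not pass without control_blank_074, control_blank_021, healthy_VCV_062 or chronic_VCV_067 (change 2.23 to 2.35, adjusted p = 0.0504 to 0.102). The bradykinin receptor Bdkrb2 differed by 1.33 ± 0.30 (adjusted p = 0.00685) and the NF-kB inhibitor Tnip2 by 1.14 ± 0.32 (adjusted p = 0.0167). Tnip2 did not pass without control_blank_016 or chronic_VCV_067 (change 0.94 and 0.84, adjusted p = 0.0813 and 0.0818). Gng8 (-1.21, adjusted p = 0.0996) had the opposite sign with the series term. Gng8 (1.60, adjusted p = 0.0808) did not pass as a difference with the series term.

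For other genes the difference was below 0. Tgfbr3, a coreceptor of TGF-beta, rose by 3.40 ± 0.35 (adjusted p = 3.2e-07) in uninjured lungs and by 1.08 ± 0.34 (adjusted p = 0.0322) after chronic injury, a difference of -2.31 ± 0.49 (adjusted p = 0.00546). Tgfbr3 did not pass without chronic_VCV_069, chronic_VCV_073, control_chronic_114, control_chronic_115 or control_chronic_116 (change 0.84 to 1.06, adjusted p = 0.0576 to 0.172). Muc5b changed by 0.97 ± 0.76 (adjusted p = 0.28) in uninjured lungs, a difference of -4.02 ± 1.05 (adjusted p = 0.0114). It was at 2038, 5357, 3022 and 471 in healthy_VCV, the last of these being healthy_VCV_062 of the 15 series, and at 1703, 1325 and 3889 in chronic_noisy of the 14 series. RNase_MRP changed by 2.49 ± 0.93 (adjusted p = 0.0254), a difference of -5.43 ± 1.29 (adjusted p = 0.00775). Cdh5 rose by 2.17 ± 0.50 (adjusted p = 0.00089) in uninjured lungs, where control_blank was at 545, 2690.1 and 4882, a difference of -2.83 ± 0.70 (adjusted p = 0.00907). Glycam1 lay below its controls in both kinds of lung, with no read in chronic_VCV. At 163, 94.9, 115.65 and 3.95 in healthy_VCV and 1459, 247 and 167 in control_blank, it differed at an adjusted p of 0.0479. It did not pass when any library other than healthy_VCV_062 or control_chronic_115 was left out (adjusted p = 0.0584 to 0.104), nor by edgeR (adjusted p = 0.0629). Both stress genes Trib3 and Edem1 rose more in uninjured lungs, with differences of -1.42 ± 0.45 (adjusted p = 0.0269) and -0.94 ± 0.33 (adjusted p = 0.039). Trib3 did not pass without control_blank_074, healthy_VCV_062 or chronic_VCV_067 (change -1.15, -1.25 and -1.03, adjusted p = 0.0593, 0.0548 and 0.122), nor by edgeR (adjusted p = 0.0655). Edem1 did not pass without control_blank_016, control_blank_021, healthy_VCV_057, healthy_VCV_060, healthy_VCV_062, chronic_VCV_067, chronic_VCV_073, control_chronic_113, control_chronic_115 or control_chronic_117 (change -0.96 to -0.75, adjusted p = 0.0508 to 0.134), nor by edgeR (adjusted p = 0.0661). Muc5b (-2.60, adjusted p = 0.107), Cdh5 (-2.25, adjusted p = 0.0672) and Edem1 (-0.85, adjusted p = 0.14) did not pass as a difference with the series term.

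Of 16 alveolar type 1 cell genes, 8 had a lower difference and 1 a higher one, against 14% and 9.92% of all genes. The 8 became 2 without control_blank_016 or chronic_VCV_067. Clic5 changed by 0.32 ± 0.18 (adjusted p = 0.134) in uninjured lungs, which did not pass, and differed by -1.16 ± 0.25 (adjusted p = 0.00592). Sema3e differed by -1.04 ± 0.31 (adjusted p = 0.0218). Sema3e did not pass without control_blank_016 or chronic_VCV_067 (change -0.85 and -0.87, adjusted p = 0.0988 and 0.0885). Of 22 endothelial genes, 8 had a lower difference and 1 a higher one, against the same shares. The 8 became 3 without control_blank_016 and 5 without chronic_VCV_067. The higher call in each of these 2 lists was lost without control_blank_016, among other libraries. The chemokine receptor of B cells, Cxcr5, differed by -1.88 ± 0.53 (adjusted p = 0.0159). Cxcr5 did not pass without chronic_VCV_067 (change -1.71, adjusted p = 0.0616). Of 64 ribosomal protein genes, 31 had a higher difference and 0 a lower one, against 9.92% of all genes. In uninjured lungs 52 of the 64 were lower, against 28.1% of all genes, and 4 were lower here, against 7.9%. Ribosomal protein genes with a higher difference numbered 7 without control_blank_016 and 8 without chronic_VCV_067. Of 70 respiratory chain genes 15 had a higher difference and 0 a lower one, and in uninjured lungs 58 were lower, against 28.1% of all genes. Respiratory chain genes with a higher difference numbered 31 without control_blank_074 and 5 without control_blank_016 or chronic_VCV_067. With the series term 16 ribosomal protein and 9 respiratory chain genes had a higher difference. Cxcr5 (-1.22, adjusted p = 0.142) did not pass as a difference with the series term.

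**Figure D4:**
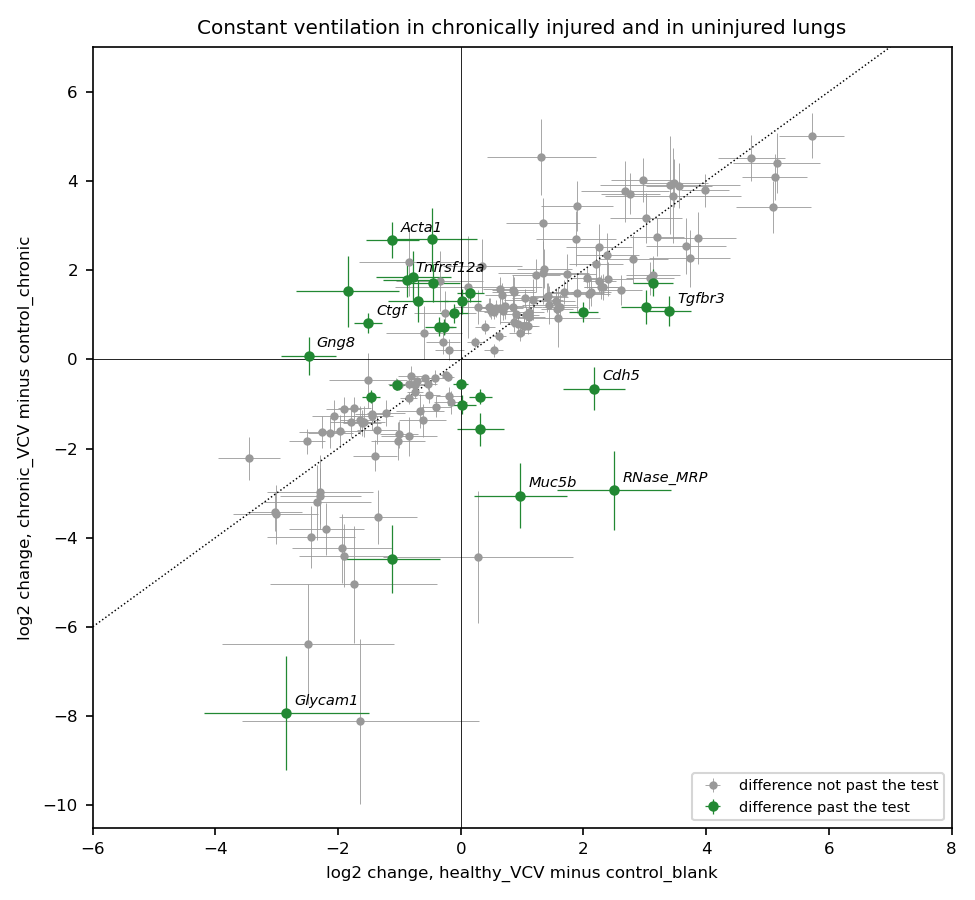
Log2 change with constant ventilation in chronically injured lungs (vertical) against uninjured lungs (horizontal) for the named genes, with bars of 1 SE; green points differ between the 2 at an adjusted p below 0.05, and the dotted line marks equal changes. Ctgf, Acta1 and Tnfrsf12a lie above the line, and Muc5b and RNase_MRP lie below it; the fitted value of Glycam1, at 0 reads in chronic_VCV, depends on the pseudocount.

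Variable ventilation was compared directly with constant ventilation in chronically injured lungs. Of 14908 genes, 362 passed, 2.43%, of which 84 were higher and 278 lower under variable tidal volumes. The count was 8 without chronic_VCV_067, 14 without chronic_noisy_084, 15 without chronic_noisy_079 and 702 without chronic_VCV_069. In a fit of these 6 libraries alone it was 33, of which 51.5% were higher, against 23.2% over all groups. Titles begin with 14 in chronic_noisy and 15 in chronic_VCV, which again cannot be told apart from the mode by these libraries alone. With the series term 9 genes passed.

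Neutrophil genes did not pass between the modes. Prok2 was at 177, 118 and 267 in chronic_noisy (chronic_noisy_075, chronic_noisy_079, chronic_noisy_084), a difference of 0.61 ± 0.56 (adjusted p = 0.523). Mmp8 was at 2022, 1656 and 3490.5, a difference of 1.34 ± 0.57 (adjusted p = 0.167), and S100a8 differed by 0.73 ± 0.56 (adjusted p = 0.437). Each mode was set against the same unventilated libraries, so their changes are not independent: Mmp8 changed by 5.43 ± 0.51 (adjusted p = 4.58e-07) under variable and 4.09 ± 0.51 (adjusted p = 4.05e-05) under constant ventilation.

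Genes higher under variable ventilation were led by heart muscle. Myl7, atrial myosin light chain, was at 433, 2296 and 814 in chronic_noisy and 3.06, 4.06 and 1.11 in chronic_VCV, a difference of 8.05 ± 1.89 (adjusted p = 0.0282). Myh6 was at 607, 2215 and 1166 and differed by 7.45 ± 1.66 (adjusted p = 0.0231). Myoglobin, Mb, differed by 6.0 ± 1.63 (adjusted p = 0.0497), the muscle protein Csrp3 by 5.50 ± 1.41 (adjusted p = 0.04) and the myosin-binding protein Mybpc3 by 3.49 ± 0.94 (adjusted p = 0.0491). The muscle actinin Actn2, outside the list of heart muscle genes, differed by 5.41 ± 1.41 (adjusted p = 0.0429). Of 15 heart muscle genes, 5 were higher under variable ventilation and 0 lower, against 0.563% and 1.86% of all genes. Heart muscle genes higher under variable ventilation numbered 3 without chronic_noisy_075, 0 without chronic_noisy_079, chronic_noisy_084, chronic_VCV_067 or chronic_VCV_073 and 2 without chronic_VCV_069. With the series term 0 did, and the shift of the 15 series was -6.06 ± 0.92 for Myh6 (adjusted p = 0.0147) and -5.92 ± 1.29 for Myl7 (adjusted p = 0.0442). In Myl7, Myh6, Mb, Csrp3 and Actn2 every chronic_noisy library lay above every chronic_VCV library, and the part of vein wall in this result was not tested. Vcan was at 2725, 3357 and 9063 and differed by 3.02 ± 0.71 (adjusted p = 0.0276). Myl7 did not pass without chronic_noisy_079, chronic_noisy_084, chronic_VCV_067 or chronic_VCV_073 (change 7.40 to 8.16, adjusted p = 0.0678 to 0.123). Nor did Myh6 (change 6.98 to 7.44, adjusted p = 0.0535 to 0.123). Vcan did not pass without chronic_noisy_079, chronic_noisy_084, chronic_VCV_067 or chronic_VCV_069 (change 2.50 to 3.27, adjusted p = 0.0583 to 0.165). With any 1 of the 6 libraries left out, Mb did not pass (change 5.20 to 6.96, adjusted p = 0.0532 to 0.18). Nor did Csrp3 (change 4.97 to 5.83, adjusted p = 0.055 to 0.149). Nor did Mybpc3 (change 2.98 to 4.03, adjusted p = 0.0551 to 0.179), nor by edgeR (adjusted p = 0.058). Actn2 did not pass without chronic_noisy_075, chronic_noisy_079, chronic_noisy_084, chronic_VCV_067 or chronic_VCV_073 (change 4.64 to 5.77, adjusted p = 0.0627 to 0.155). Myl7 (2.13, adjusted p = 0.724), Myh6 (1.38, adjusted p = 0.754), Mb (0.67, adjusted p = 0.919), Csrp3 (1.31, adjusted p = 0.796), Mybpc3 (0.23, adjusted p = 0.947), Actn2 (1.07, adjusted p = 0.84) and Vcan (1.85, adjusted p = 0.485) did not pass between the modes with the series term.

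Fosl1, Egr1, Jund, Tnfrsf12a, Acta1, Ctrb1 and Slc5a2 were lower under variable ventilation. Fosl1 was at 29.8, 11.7 and 20.7 in chronic_noisy and differed by -3.54 ± 0.64 (adjusted p = 0.0122). Egr1 was at 682, 315 and 322 and differed by -3.05 ± 0.79 (adjusted p = 0.0416), and Jund, an AP-1 subunit, was at 219, 513 and 484 against 6507, 2274 and 2010.2 and differed by -3.03 ± 0.59 (adjusted p = 0.0149). For Fosl1, Egr1 and Jund every chronic_noisy library lay below every chronic_VCV library. Tnfrsf12a was at 302, 147 and 158 and differed by -2.66 ± 0.42 (adjusted p = 0.00687), and Acta1 was at 37.9, 35.0 and 26.2 and differed by -2.66 ± 0.46 (adjusted p = 0.0114). The digestive protease precursor Ctrb1 was at 0, 4.49 and 3.18 against 122, 40.6 and 71.0 and differed by -4.66 ± 0.79 (adjusted p = 0.01), and the glucose transporter Slc5a2 differed by -2.97 ± 0.75 (adjusted p = 0.0358). Fosl1 did not pass without chronic_noisy_079, chronic_noisy_084 or chronic_VCV_067 (change -3.19, -3.58 and -2.33, adjusted p = 0.0632, 0.0514 and 0.0638). Egr1 did not pass without chronic_noisy_075, chronic_noisy_079, chronic_noisy_084 or chronic_VCV_067 (change -3.41 to -1.76, adjusted p = 0.0528 to 0.277). Jund did not pass without chronic_noisy_079, chronic_noisy_084 or chronic_VCV_067 (change -3.25, -3.20 and -2.49, adjusted p = 0.051, 0.0583 and 0.116). Acta1 did not pass without chronic_noisy_084 or chronic_VCV_067 (change -2.51 and -2.52, adjusted p = 0.0514 and 0.0638). Ctrb1 did not pass without chronic_VCV_067 (change -4.27, adjusted p = 0.0638). Slc5a2 did not pass without chronic_noisy_075, chronic_noisy_079, chronic_noisy_084, chronic_VCV_067 or chronic_VCV_073 (change -3.20 to -2.64, adjusted p = 0.0664 to 0.163). Of 21 immediate early genes, 7 were lower under variable ventilation and 0 higher, against 1.86% and 0.563% of all genes. Immediate early genes lower under variable ventilation numbered 0 without chronic_noisy_079, chronic_noisy_084 or chronic_VCV_067. The count was 0 in the fit of these 6 libraries alone, 0 with the series term and 14 by edgeR. Fosl1 (-4.01, adjusted p = 0.0957), Egr1 (-3.17, adjusted p = 0.264), Jund (-1.24, adjusted p = 0.486), Acta1 (-3.11, adjusted p = 0.064) and Slc5a2 (-0.69, adjusted p = 0.789) did not pass between the modes with the series term.

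**Figure D5:**
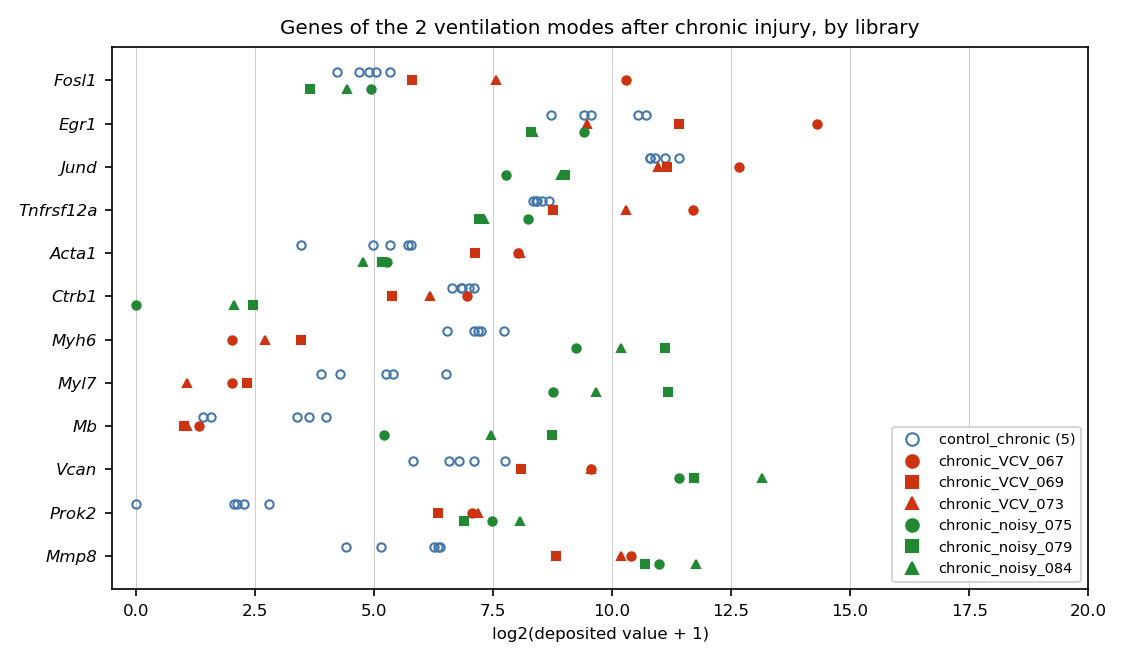
Levels of 12 genes as log2(deposited value + 1) in control_chronic (open circles), chronic_VCV (red) and chronic_noisy (green), 1 symbol per library. Heart muscle genes such as Myl7 and Myh6 lie higher in chronic_noisy than in chronic_VCV, Fosl1 and Tnfrsf12a lie lower, and Prok2 overlaps between the modes.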

How the data were processed

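Strand-specific RNA-seq libraries of the right upper lung lobe were made with poly(A) selection and dUTP marking and sequenced on a HiSeq 2000, per the labels' protocols. The submitters' processing notes name CASAVA 1.8.0, BWA, bedtools 2.11, DESeq 1.8.3 and build rn4 without their order, and Ensembl version 67 is named per the file headers. Whether counting used strand is not given in the sources used here. The deposited values, a signal in the sense of read counts that the authors divided by 1 size factor per library, gave back whole reads in 100% of values in every library within 0.1 read. The study compared groups taken from the labels, and no columns were left unmapped. No libraries of a group agreed within sampling noise (smallest chi-square per gene 15.5).

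Here log2(value + 1) was fitted with limma 3.58.1 (R 4.3.3) as 1 mean for each of 8 groups, with a trended, robust prior, over genes with a mean value of at least 10. P-values were adjusted by Benjamini and Hochberg over 14908 genes at a threshold of 0.05. The 3 contrasts were constant ventilation after chronic injury, its difference from uninjured lungs, and variable minus constant ventilation. Alternatives were a pseudocount of 10, no filter, quantile normalization, a fit of the compared groups alone, each library left out, control_chronic_113 and control_chronic_114 left out, and edgeR 4.0.16 (quasi-likelihood) on the recovered reads. A term for the 15 series of title numbers was added after seeing the data. The code was tested on simulated data. Principal components used log2(value + 1) of the 8 libraries.

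The gene lists, the members described and the comparisons were chosen with earlier results of these data known. Named genes were the 12 highest and 12 lowest changes among genes past the test without overlap and with a mean of at least 50, the 5 highest and 5 lowest of the other 2 contrasts, and list members, each with whether it passed. Of those the rule allows, the text favours members that passed with every library left out, chosen after their values were seen, as was Actn2 in its list comparison. Gene labels that several identifiers share were left out, and some genes that the rule names are not reported here. Promoters of GRCr8 came from RefSeq by gene symbol, and motifs were searched as the letters given.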

Additional observations from a re-analysis of the deposited data

Results flagged for a closer look

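Among 190 groups of 4 or 5 libraries, 13 held 1 library far from the others, where chance sets apart about 1 in 20. In control_chronic_117 these were Clec4e at 6.43, Tnip2 at 363, Bcl3 at 336, Aqp1 at 18633, Cdh5 at 10448 and Hspa5 at 13686.5. In control_chronic_113 they were Prok2 at 0, Fpr1 at 3.18 and Gng8 at 1223. Hsd11b2 stood apart in control_chronic_115 at 25.5, Sftpb in control_chronic_114 at 85548 and Atf4 in control_chronic_116 at 7059. Glycam1 stood apart in healthy_VCV_062 at 3.95.

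Genes whose response to constant ventilation differed between chronically injured and uninjured lungs (limma interaction, adjusted p below 0.05) are given as the log2 difference of the responses. Inflammatory and vascular genes with a higher value after chronic injury were Ccl7 (3.37), Ccl17 (3.16), Tnfrsf12a (2.65), Adm (2.16), Bdkrb2 (1.33) and Tnip2 (1.14). Stretch, muscle and stress genes with a higher value were Acta1 (3.79), Tnnc1 (2.63), Ctgf (2.32), Cyr61 (2.01), Atf4 (1.08) and Ddit3 (0.98). Others with a higher value were Gng8 (2.56), Per2 (1.27), Tuba1a (0.63) and Ndufs3 (0.47).

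Lymphoid genes with a lower value after chronic injury were Cr2 (-3.35) and Cxcr5 (-1.88), as well as Glycam1, whose fitted -5.09 depends on the pseudocount. Epithelial and endothelial genes with a lower value were Muc5b (-4.02), Cdh5 (-2.83), Clic5 (-1.16) and Sema3e (-1.04). The remaining lower values were RNase_MRP (-5.43), Tgfbr3 (-2.31), Nr1d1 (-1.85), Trib3 (-1.42), Edem1 (-0.94) and Lta4h (-0.56).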

How the results depend on the processing

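The count of 2205 genes changed by constant ventilation after chronic injury ranged from 1181 without chronic_VCV_069 to 2065 without chronic_VCV_067, with 1402 without chronic_VCV_073, and was 1389 without control_chronic_113 and control_chronic_114. Under the other 5 alternatives it was 2172 to 2415. By edgeR 2024 genes were shared with the same direction. The difference from uninjured lungs ranged from 943 without control_blank_016 to 4933 without control_blank_074, with 1150 without chronic_VCV_067. The difference between modes ranged from 8 without chronic_VCV_067 to 702 without chronic_VCV_069, with 157 without chronic_VCV_073, 202 without chronic_noisy_075, 15 without chronic_noisy_079 and 14 without chronic_noisy_084. It was 33 in the fit limited to the compared groups. With the series term, chosen after seeing the data, the counts were 2335 after chronic injury, 1113 for the difference from uninjured lungs and 9 between modes. The cause of these shifts was not tested. Of 169 genes described in the main comparison, edgeR kept 159 on the same side of the threshold, lost 4 and added 6, and single libraries left out lost calls of 34. The text favours members that passed with every library left out, so counts over these 169 do not stand for all genes. Over all 2205 genes called, 684 passed with each of the 8 libraries left out. Without both control_chronic_113 and control_chronic_114, 19 lost their call, and in the fit limited to the compared groups 7 did. Quantile normalization lost 4 and added 2, a pseudocount of 10 lost 3, and no filter lost 1. The series term lost 44, added 8 and turned the sign of Myh6 (1.636), Sftpb (-0.442), Cdh5 (0.113), Tnnt2 (1.975) and Gng8 (-1.206). Genes that did not pass and changed sign with 1 library left out were Il6 (-0.193 to 3.018), Cxcl1 (-0.497 to 1.361) and Gng8 (-0.174 to 0.387), with the lowest value of each without chronic_VCV_067. Gng8 was also below 0 (-0.011) without control_chronic_116 or control_chronic_117. Under quantile normalization Sftpc was at 0.614 and Ager at 0.049. No paired analysis was possible because chronic_VCV, control_chronic and the other groups have no replicate number in common. Depth was lowest in control_chronic_113, where 1 read is worth 3.18, which limits genes near 0.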
